A study of Mus musculus with 12 samples.

Results

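The 39 genes described here are a fixed list of genes expressed by microglia and other myeloid cells, 39 of 54356 genes summed in the 12 libraries. They cover 3 transcription factors, 9 surface receptors and homeostatic genes, 3 chains of complement C1q, 6 adaptors and paired receptors that signal through immunoreceptor tyrosine-based activation motifs (ITAMs), and 5 leukocyte membrane genes. The others are 2 genes of lipopolysaccharide (LPS) sensing, 7 genes of the phagosome, lysosome and oxidase, and a group of 4 holding the chemokines Ccl3 and Ccl4, Ltc4s and Aif1. Of the 39, 38 were among the 14607 genes that passed the filter on low counts. Siglech, with 0 or 1 read in every library, did not. Of the 38, 21 would have passed from the shPTB libraries alone, and 17 passed only through the mock libraries, so those 17 had to differ. The 17 were Irf8, Ikzf1, Cx3cr1, P2ry13, Gpr34, Fcrls, Selplg, Ptprc, Itgam, Cd53, Laptm5, Ly86, Ctss, Mpeg1, Ccl4, Ltc4s and Aif1. Their calls against mock, given below, carry no separate weight. Among the 21, Cd14 passed only through the cortex 2-week libraries, where it was highest. Counts and medians over the list therefore describe the libraries and carry no separate weight.

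The series sequenced RNA of cultures labelled astrocyte from C57BL/6 mice, grown from midbrain or cortex, and asked how expression moves from astrocytes to neurons when PTB is depleted. Midbrain and cortex cultures with a PTB-directed short hairpin RNA (shPTB) were kept in neuronal differentiation medium for 2 or 4 weeks, and mock cultures of each region were kept in growth medium. Each of the 6 groups held 2 libraries, numbered 1 and 2 and given in that order here. All groups share the strain and the astrocyte label, and no other allele is given. Hairpin and medium came together in every shPTB culture, and what each contributed cannot be told apart. The labels give no weeks for the mock cultures, so time in culture cannot be told apart from hairpin and medium either. Comparisons of 4 with 2 weeks likewise have no mock cultures labelled with the same weeks. Nothing in the labels ties the 2 libraries of a group to separate cultures or mice, so a p-value here reflects the spread between libraries, which may be technical. They also give no age of the mice and no vector or promoter for the hairpin.

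Libraries held 6022098 to 11385761 reads, and 3 reads, the upper limit that a count of 0 allows, were 0.331 to 0.576 CPM (reads relative to library size, TMM-scaled) in shPTB and 0.163 to 0.239 CPM in mock libraries. Such limits and the exact 95% intervals given below cover counting error only. Mitochondrially encoded genes took 36.4 to 48.3% of reads in shPTB libraries and 16.9 to 22.7% in mock libraries. TMM factors were 0.680 to 0.953 in shPTB and 1.22 to 1.69 in mock libraries. Ptbp1, which encodes PTB, had 105 and 90.8 CPM at 2 weeks and 169 and 155 at 4 weeks in midbrain shPTB libraries, against 208 and 249.98 in midbrain mock libraries. In cortex, Ptbp1 had 73.01 and 73.5 CPM at 2 weeks and 89.2 and 90.5 at 4 weeks in cortex shPTB libraries, against 173 and 251 in cortex mock libraries. Its log2 fold change against mock was -1.22 (SE 0.21, adjusted p = 0.00122) at 2 weeks and -0.496 (SE 0.203, adjusted p = 0.0744) at 4 weeks in midbrain. In cortex it was -1.53 (SE 0.21, adjusted p = 2.67e-04) at 2 weeks and -1.24 (SE 0.21, adjusted p = 8.14e-04) at 4 weeks. The targeted transcript was thus lower in all 8 shPTB libraries than in both mock libraries of its region, and the midbrain difference at 4 weeks did not pass the test. The 13 astrocyte markers summed to 12310.1 to 18949 CPM in shPTB libraries and 13105 to 24842 CPM in mock libraries, so the labelled cell type was present by its markers in every library.

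Microglia are the resident macrophages of the brain. They arise from yolk-sac myeloid progenitors, depend on signalling through the receptor CSF1R, and are a common companion of astrocytes in cultures made from neonatal brain. PU.1, encoded by Spi1, drives most of their gene programme by binding purine-rich sites with a GGAA core. TREM2 and the Fc receptors carry no signalling tail of their own and pair with the adaptors DAP12 (Tyrobp) and the Fc receptor gamma chain (Fcer1g), whose phosphorylated ITAMs recruit the kinase Syk.

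Most of the list fell after shPTB in both regions, and the median change was deeper at 4 weeks than at 2 weeks. Reads of the 39 genes together made 309 and 292 CPM at 2 weeks and 91.7 and 89.5 CPM at 4 weeks in midbrain shPTB libraries, against 2987 and 3958 CPM in midbrain mock libraries. In cortex they made 587 and 586 CPM at 2 weeks and 126 and 121 CPM at 4 weeks in cortex shPTB libraries, against 2865 and 4186 CPM in cortex mock libraries. The groups did not overlap in either region, and mock library 2 was the higher mock library in both. Against midbrain mock, 34 of 38 members fell at 2 weeks, where 14.7% of all genes tested were lower. Another 3 rose (P2ry12, Clec4a1 and Ccl3), where 15.9% were higher, and Cd14 did not pass. In either direction 30.6%, 39.2%, 35.0% and 39.4% of all genes were called at 2 and 4 weeks in midbrain and at 2 and 4 weeks in cortex. At 4 weeks in midbrain 34 fell, with 20.4% of all genes lower and 18.7% higher, none rose, and P2ry12, Clec4a1, Cd14 and Cyba did not pass. Against cortex mock, 31 fell at 2 weeks, with 17.6% of all genes lower, and 2 rose (Clec4a1 and Cd14), with 17.5% higher, while P2ry12, Selplg, Cyba, Ccl3 and Ccl4 did not pass. At 4 weeks in cortex 35 fell, with 20.9% of all genes lower and 18.5% higher, none rose, and P2ry12, Clec4a1 and Cd14 did not pass. All of these calls are from edgeR's quasi-likelihood test at an adjusted p of 0.05.

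The median log2 fold change of the 38 members was -3.77 at 2 weeks and -6.03 at 4 weeks in midbrain, where the median of all genes tested was -0.07 and -0.15. In cortex it was -3.13 at 2 weeks and -5.37 at 4 weeks, against -0.11 and -0.12 for all genes. With members at 0 reads set to the bound that 3 reads over the group allow, and those with 1 to 3 reads to their ratio, the medians were -3.67 and -5.04 in midbrain and -2.78 and -5.18 in cortex. Both comparisons of a region share its mock libraries, so they are not independent of each other. In 33 members all 8 shPTB libraries lay below both mock libraries of their region, the exceptions being P2ry12, Clec4a1, Cd14, Cyba and Ccl3. Over all genes, both shPTB libraries lay below both mock libraries for 33.9% and 37.8% at 2 and 4 weeks in midbrain and for 34.9% and 36.4% in cortex. In these bulk libraries fewer myeloid cells and less of these transcripts per cell cannot be told apart. The higher mitochondrial share moved with the same comparison, and its part in the result was not tested.

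**Figure D1:**
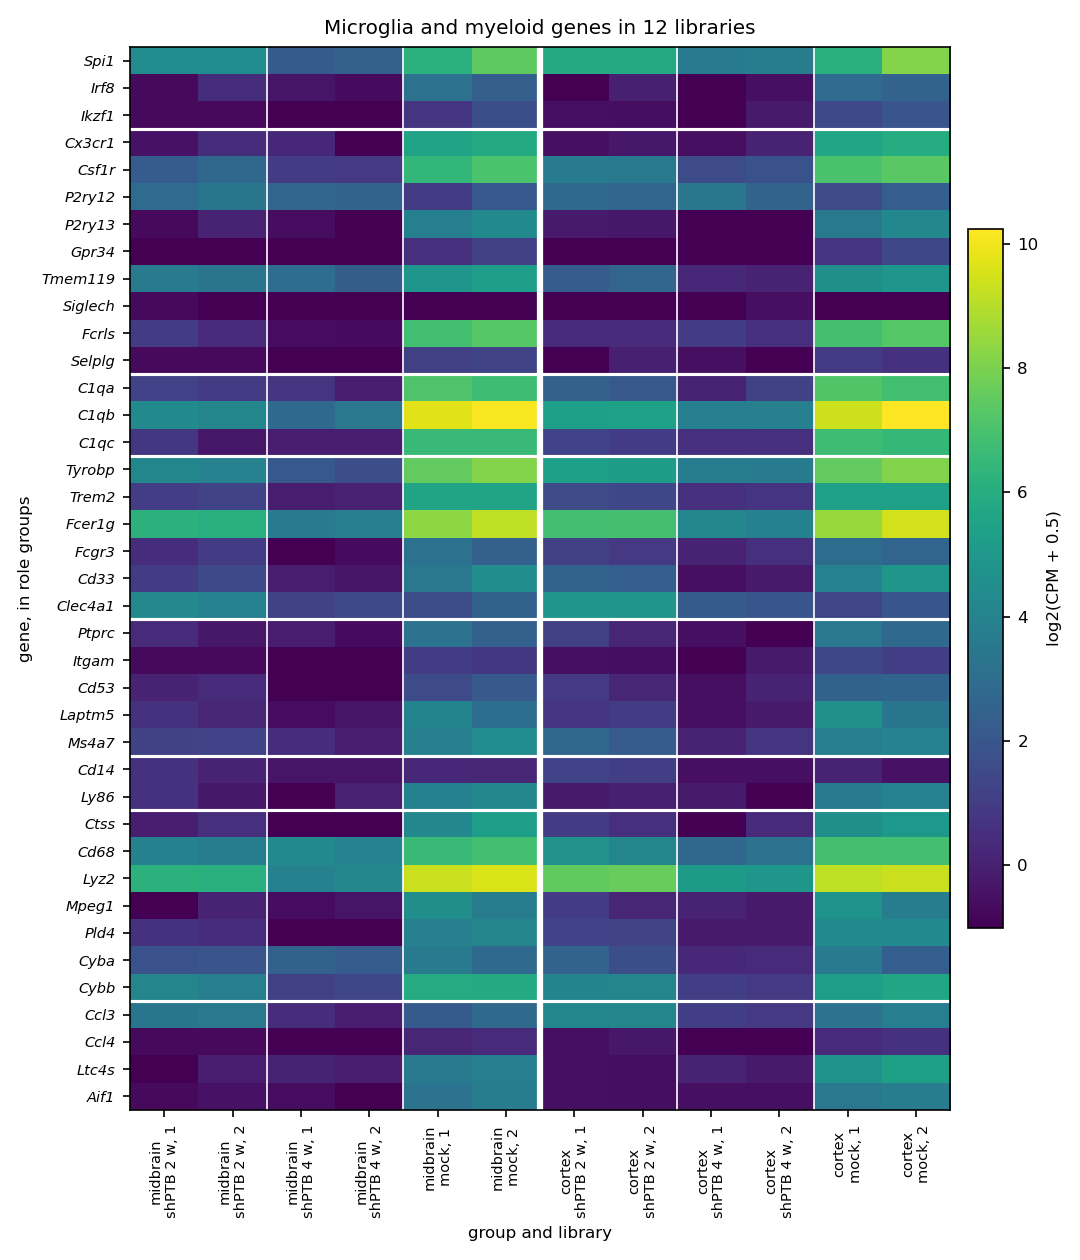
Level of each of the 39 genes (down the page, by role) in each of the 12 libraries (across), as log2(CPM + 0.5). The shPTB columns are dark against mock for most genes, with P2ry12, Clec4a1, Ccl3 and Cd14 as the visible exceptions at 2 weeks.

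**Figure D2:**
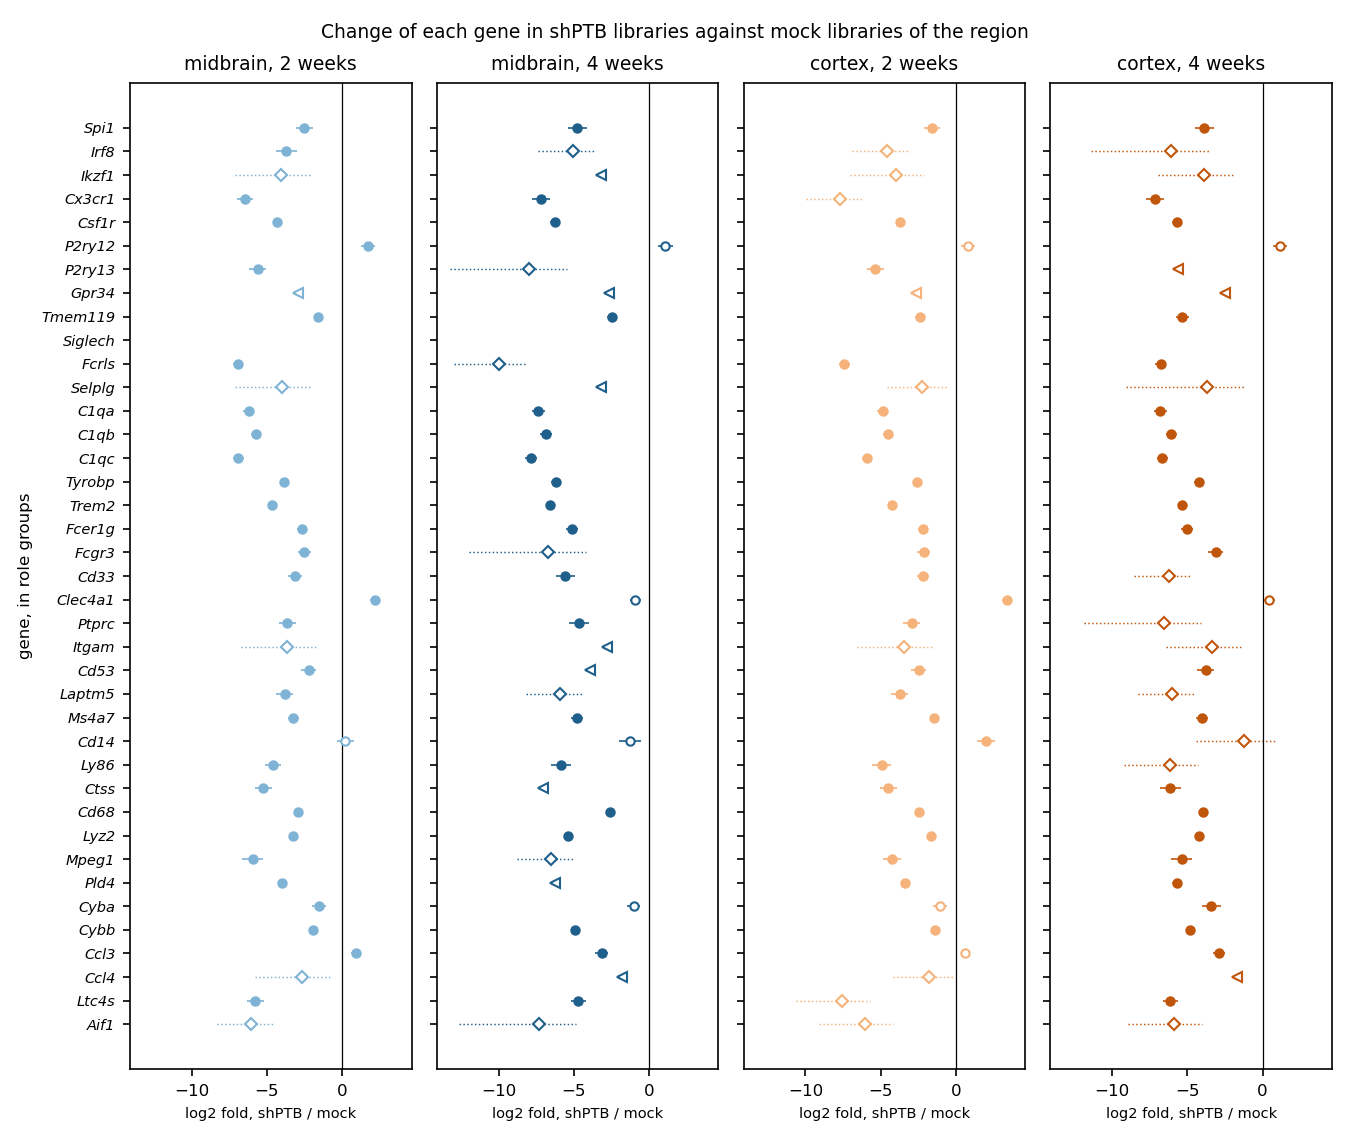
Log2 fold change against mock of each gene at 2 and 4 weeks in midbrain and cortex, with its standard error as a bar. Filled points passed an adjusted p of 0.05 and open circles did not. Diamonds with dotted lines are ratios with a 95% counting interval where a group had 1 to 3 reads, and open triangles are bounds where it had 0; Siglech was not tested. Most points lie left of 0, and P2ry12, Clec4a1, Ccl3 and Cd14 lie right of 0 in at least 1 panel.

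Sequences upstream of these genes were read from RefSeq (build GRCm38.p6), in windows of 300 bases that run from 250 before the annotated start to 50 after it. The table matched 30 of the 39 members by symbol. The purine-rich word GAGGAA, found on either strand, is the core of the site PU.1 is known to bind, and GAGGAAGT is a longer form that contains it. GAGGAA lay in the windows of 21 of 30 members (70.0%) and of 31.3% of all 27025 genes in the table. GAGGAAGT lay in those of 4 of 30 (13.3%), namely C1qc, Cd53, Ctss and Pld4, and of 3.69% of all genes. Other words searched on both strands were the ETS-IRF composite element (3 of 30 members and 3.16% of all genes), the E-box CACGTG (6.67% and 8.09%), TATAAA (16.7% and 15.7%) and TGACTCA (3.33% and 5.95%). A match is a description of the letters and shows no binding. Below are 260 bases of 4 windows, 250 before the start and 10 after it, in lower case with matches to GAGGAA on either strand, or to the longer word where present, in capitals. C1qc and Ctss are shown as genes that fell in every comparison with mock and hold the longer word. Clec4a1 is shown as the gene that rose at 2 weeks in both regions. P2ry12 is shown as the gene whose shPTB libraries were all above mock in CPM, though not in mean TPM. The P2ry12 window holds neither word.
C1qc, chr4:136892905-136893164, minus strand: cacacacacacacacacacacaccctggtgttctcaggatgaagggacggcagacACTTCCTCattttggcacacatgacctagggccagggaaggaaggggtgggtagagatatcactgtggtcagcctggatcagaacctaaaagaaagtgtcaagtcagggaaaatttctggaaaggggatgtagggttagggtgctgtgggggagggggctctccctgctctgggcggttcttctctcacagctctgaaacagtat
Ctss, chr3:95526536-95526795, plus strand: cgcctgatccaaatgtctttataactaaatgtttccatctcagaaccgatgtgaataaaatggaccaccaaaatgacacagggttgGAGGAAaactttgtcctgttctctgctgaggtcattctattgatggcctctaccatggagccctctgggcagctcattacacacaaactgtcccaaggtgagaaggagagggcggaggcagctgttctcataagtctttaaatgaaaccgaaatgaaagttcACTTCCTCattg
Clec4a1, chr6:122921598-122921857, plus strand: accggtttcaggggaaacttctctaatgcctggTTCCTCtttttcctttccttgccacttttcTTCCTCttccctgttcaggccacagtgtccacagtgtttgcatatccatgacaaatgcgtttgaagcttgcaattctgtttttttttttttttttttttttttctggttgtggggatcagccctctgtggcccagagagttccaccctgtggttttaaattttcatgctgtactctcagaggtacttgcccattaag
P2ry12, chr3:59262976-59263235, minus strand: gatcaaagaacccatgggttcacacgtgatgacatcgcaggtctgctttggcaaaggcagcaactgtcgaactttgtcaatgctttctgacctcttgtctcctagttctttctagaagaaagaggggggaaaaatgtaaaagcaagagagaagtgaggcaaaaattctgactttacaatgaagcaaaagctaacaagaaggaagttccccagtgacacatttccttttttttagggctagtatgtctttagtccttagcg

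The 3 transcription factors were lower in every comparison with mock, but to different depths. Spi1, which encodes PU.1, had 21.05 and 21.5 CPM at 2 weeks and 4.01 and 4.95 at 4 weeks in midbrain shPTB libraries, against 72.2 and 171 in midbrain mock libraries. In cortex Spi1 had 58.4 and 58.3 CPM at 2 weeks and 11.5 and 12.5 at 4 weeks in cortex shPTB libraries, against 66.6 and 285 in cortex mock libraries. The groups did not overlap in midbrain, while in cortex the 2-week libraries came close to mock library 1, and the mock libraries themselves differed 4.28-fold in cortex and 2.37-fold in midbrain. Spi1 changed by a log2 fold of -2.51 (SE 0.57, adjusted p = 0.00658) at 2 weeks and -4.76 (SE 0.66, adjusted p = 2.61e-04) at 4 weeks in midbrain. In cortex it was -1.59 (SE 0.54, adjusted p = 0.0417) at 2 weeks and -3.87 (SE 0.61, adjusted p = 5.82e-04) at 4 weeks. The 2-week calls of Spi1 did not hold with some libraries left out. Without midbrain 2-week library 1 (-2.505) or library 2 (-2.53) the midbrain value stayed near its full value, but the call was lost. In cortex it was lost without cortex mock library 2 (-0.198, adjusted p = 0.694), without cortex 2-week library 1 (-1.603, adjusted p = 0.164) and without cortex 2-week library 2 (-1.601, adjusted p = 0.169). The cortex 4-week value was -2.47 (adjusted p = 3.50e-04) without cortex mock library 2. With transcript length offsets the 2-week values were -2.06 (adjusted p = 0.05304) in midbrain and -1.15 (adjusted p = 0.221) in cortex, and the calls of Spi1 at 2 weeks were lost. In cortex that call also ended with mock library 2 of both regions left out (-0.19, adjusted p = 0.135) and with only the groups compared in the fit (-1.59, adjusted p = 0.0759).

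Irf8, an interferon-regulatory factor that partners PU.1 in macrophages, had 1 and 8 reads at 2 weeks and 2 and 1 at 4 weeks in midbrain shPTB libraries, against 159 and 74 in midbrain mock libraries. In cortex Irf8 had 0 and 3 reads at 2 weeks and 0 and 1 at 4 weeks in cortex shPTB libraries, against 121 and 67 in cortex mock libraries. All shPTB libraries lay far below mock. In midbrain Irf8 changed by a log2 fold of -3.71 (SE 0.69, adjusted p = 0.00228) at 2 weeks and was 33.6-fold lower (95% counting interval 11.4 to 164, adjusted p = 9.06e-04) at 4 weeks. In cortex, where each shPTB group held 3 reads or fewer, it was 24.2-fold lower (95% counting interval 8.16 to 118, adjusted p = 0.002004) at 2 weeks and 67.3-fold lower (95% counting interval 11.9 to 2673, adjusted p = 0.00105) at 4 weeks. Reads of Irf8 can also belong to the annotated gene Gm20388, which overlaps it on the same strand. Without midbrain 2-week library 2 the midbrain 2-week value was -5.74 (adjusted p = 0.00554). Ikzf1, the lymphoid and myeloid factor Ikaros, was low even in mock, with 1 and 1 reads at 2 weeks and 0 and 0 at 4 weeks in midbrain shPTB libraries, against 21 and 42 in midbrain mock libraries. In cortex it had 1 and 1 reads at 2 weeks and 0 and 2 at 4 weeks in cortex shPTB libraries, against 39 and 43 in cortex mock libraries. The groups did not overlap. Ikzf1 was 16.6-fold lower (95% counting interval 4.403 to 139.9, adjusted p = 0.00777) at 2 weeks and at least 9.08-fold lower (adjusted p = 0.00278) at 4 weeks in midbrain, and 15.8-fold lower (95% counting interval 4.25 to 133, adjusted p = 0.00721) and 14.7-fold lower (95% counting interval 3.94 to 123, adjusted p = 0.00733) in cortex. Its calls ended without midbrain 2-week library 1 (-3.97, adjusted p = 0.0637) and without midbrain 2-week library 2 (-3.93, adjusted p = 0.0647) at 2 weeks in midbrain. They ended without cortex 2-week library 1 (-4.03, adjusted p = 0.0525) and without cortex 2-week library 2 (-3.84, adjusted p = 0.0666) at 2 weeks in cortex, and without cortex 4-week library 1 (-2.85, adjusted p = 0.0587) at 4 weeks, the values in parentheses being fitted log2 fold changes.

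Among surface receptors, most genes that mark resting microglia were near the counting limit in shPTB libraries. Cx3cr1, the receptor for the neuronal chemokine fractalkine, had 2 and 8 reads at 2 weeks and 5 and 0 at 4 weeks in midbrain shPTB libraries, against 803 and 897 in midbrain mock libraries. In cortex Cx3cr1 had 1 and 2 reads at 2 weeks and 1 and 3 at 4 weeks in cortex shPTB libraries, against 864 and 768 in cortex mock libraries. Every mock library held at least 768 reads and every shPTB library at most 8. Cx3cr1 changed by a log2 fold of -6.47 (SE 0.54, adjusted p = 9.53e-06) at 2 weeks and -7.16 (SE 0.59, adjusted p = 6.87e-06) at 4 weeks in midbrain. The only midbrain 4-week reads were in library 1. In cortex Cx3cr1 was 210.1-fold lower (95% counting interval 71.8 to 1020.03, adjusted p = 8.72e-06) at 2 weeks and changed by a log2 fold of -7.16 (SE 0.61, adjusted p = 7.95e-06) at 4 weeks. Other genes share 10.4% of the 31-base words in the last 500 bases of Cx3cr1. Csf1r, the receptor for CSF1 and IL-34 on which microglia depend, kept more reads, with 4.29996 and 6.51 CPM at 2 weeks and 1.52 and 1.34 at 4 weeks in midbrain shPTB libraries, against 87.1 and 133 in midbrain mock libraries. In cortex Csf1r had 11.4 and 11.2 CPM at 2 weeks and 2.56 and 3.07 at 4 weeks in cortex shPTB libraries, against 128 and 164 in cortex mock libraries. Its 2-week libraries lay above its 4-week libraries and far below mock in both regions. Csf1r changed by a log2 fold of -4.34 (SE 0.28, adjusted p = 1.71e-06) at 2 weeks and -6.25 (SE 0.33, adjusted p = 3.90e-07) at 4 weeks in midbrain. In cortex Csf1r changed by -3.69 (SE 0.27, adjusted p = 4.35e-06) and -5.69 (SE 0.32, adjusted p = 5.83e-07) at the same times.

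Tmem119, a membrane protein used as a marker of resident microglia, was less reduced in midbrain than in cortex. It had 12.2 and 9.49 CPM at 2 weeks and 7.46 and 4.42 at 4 weeks in midbrain shPTB libraries, against 28.2 and 38.6 in midbrain mock libraries. In cortex Tmem119 had 4.31 and 5.84 CPM at 2 weeks and 0.733 and 0.576 at 4 weeks in cortex shPTB libraries, against 23.99 and 29.8 in cortex mock libraries. The midbrain shPTB libraries were all above the cortex shPTB libraries of the same week and all below mock. Tmem119 changed by a log2 fold of -1.62 (SE 0.27, adjusted p = 0.00122) at 2 weeks and -2.49 (SE 0.29, adjusted p = 8.40e-05) at 4 weeks in midbrain. In cortex Tmem119 changed by -2.396 (SE 0.301, adjusted p = 1.55e-04) and -5.33 (SE 0.41, adjusted p = 4.01e-06) at the same times. Fcrls, an Fc-receptor-like scavenger receptor, had 13 and 7 reads at 2 weeks and 1 and 1 at 4 weeks in midbrain shPTB libraries, against 2079 and 2474 in midbrain mock libraries. In cortex Fcrls had 4 and 5 reads at 2 weeks and 8 and 5 at 4 weeks in cortex shPTB libraries, against 2058 and 1915 in cortex mock libraries. Its shPTB counts were at most 13 where mock counts were at least 1915, and its log2 fold change was -6.91 (SE 0.33, adjusted p = 3.28e-07) at 2 weeks in midbrain, -7.42 (SE 0.36, adjusted p = 2.91e-07) at 2 weeks in cortex and -6.79 (SE 0.34, adjusted p = 3.17e-07) at 4 weeks in cortex. At 4 weeks in midbrain Fcrls was 984-fold lower (95% counting interval 272 to 8130.5, adjusted p = 1.57e-07).

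P2ry13, an ADP receptor, had 1 and 5 reads at 2 weeks and 1 and 0 at 4 weeks in midbrain shPTB libraries, against 258 and 315 in midbrain mock libraries. In cortex it had 2 and 2 reads at 2 weeks and 0 and 0 at 4 weeks in cortex shPTB libraries, against 193 and 229 in cortex mock libraries. It fell in all 4 comparisons, by a log2 fold of -5.62 (SE 0.54, adjusted p = 4.78e-05) at 2 weeks in midbrain and -5.35 (SE 0.59, adjusted p = 1.04e-04) at 2 weeks in cortex. At 4 weeks it was 248-fold lower (95% counting interval 44.3 to 9803, adjusted p = 2.82e-05) in midbrain and at least 50.4-fold lower (adjusted p = 3.93e-05) in cortex. Gpr34, a lysophosphatidylserine receptor, had 0 reads in all 8 shPTB libraries, and 17 and 26 reads in midbrain mock and 20 and 28 reads in cortex mock libraries. Gpr34 was at least 7.54-fold lower (adjusted p = 0.0124) at 2 weeks and at least 6.198-fold lower (adjusted p = 0.0127) at 4 weeks in midbrain, and at least 6.18-fold lower (adjusted p = 0.0134) and at least 5.73-fold lower (adjusted p = 0.01296) in cortex. Each of these calls ended when either of the compared shPTB libraries was left out: at 2 weeks in midbrain without midbrain 2-week library 1 (-6.701, adjusted p = 0.0632) and without midbrain 2-week library 2 (-6.696, adjusted p = 0.0638), and at 4 weeks without midbrain 4-week library 1 (-6.72, adjusted p = 0.0618) and without midbrain 4-week library 2 (-6.72, adjusted p = 0.0621). In cortex they ended at 2 weeks without cortex 2-week library 1 (-7.13, adjusted p = 0.0596) and without cortex 2-week library 2 (-7.12, adjusted p = 0.0704), and at 4 weeks without cortex 4-week library 1 (-7.12, adjusted p = 0.0628) and without cortex 4-week library 2 (-7.13, adjusted p = 0.0592). With DESeq2 none of the 4 calls of Gpr34 was made, its adjusted p being 0.448 and 0.4402 at 2 and 4 weeks in midbrain and 0.449 and 0.449 in cortex. Selplg, the ligand of P-selectin, had 1 and 1 reads at 2 weeks and 0 and 0 at 4 weeks in midbrain shPTB libraries, against 31 and 31 in midbrain mock libraries. In cortex Selplg had 0 and 3 reads at 2 weeks and 1 and 0 at 4 weeks in cortex shPTB libraries, against 24 and 13 in cortex mock libraries. It was 16.3-fold lower (95% counting interval 4.33 to 138, adjusted p = 0.00988) at 2 weeks and at least 8.94-fold lower (adjusted p = 0.00337) at 4 weeks in midbrain, and in cortex 4.76-fold lower (95% counting interval 1.51 to 24.2, adjusted p = 0.0861), which did not pass, and 13.2-fold lower (95% counting interval 2.23 to 537, adjusted p = 0.0298). The midbrain 2-week call of Selplg ended without midbrain 2-week library 1 (-3.91, adjusted p = 0.07801) and without midbrain 2-week library 2 (-3.88, adjusted p = 0.0798). Its cortex 4-week call ended without cortex mock library 1 (-3.299, adjusted p = 0.0904), without cortex 4-week library 1 (-6.67, adjusted p = 0.06395) and without cortex 4-week library 2 (-2.66, adjusted p = 0.168). It ended too with DESeq2 (-3.72, adjusted p = 0.106) and with mock library 1 of both regions left out (-3.28, adjusted p = 0.0625). The cortex 2-week difference of Selplg passed without cortex 2-week library 2 (-6.66, adjusted p = 0.0448) and when scaled to total reads (-2.95, adjusted p = 0.0256).

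P2ry12, the ADP receptor of resting microglia and a relative of P2ry13, was higher in CPM where most members were lower. In TPM, which scales by transcript length, its group means were lower than mock. They were 0.529 and 0.359 TPM at 2 and 4 weeks in midbrain shPTB, against 1.03 in midbrain mock libraries. In cortex they were 0.39 and 0.199 TPM, against 1.22 in cortex mock libraries. P2ry12 had 7.13 and 9.71 CPM at 2 weeks and 5.803 and 5.22 at 4 weeks in midbrain shPTB libraries, against 1.46 and 3.72 in midbrain mock libraries. In cortex P2ry12 had 6.55 and 5.84 CPM at 2 weeks and 10.3 and 5.38 at 4 weeks in cortex shPTB libraries, against 2.44 and 4.69 in cortex mock libraries. All 8 shPTB libraries were above both mock libraries of their region, and P2ry12 was the only tested member of which this held. The difference passed in midbrain at 2 weeks, 1.71 (SE 0.46, adjusted p = 0.0158), and not at 4 weeks, 1.098 (SE 0.47, adjusted p = 0.0856), nor in cortex at 2 weeks, 0.81 (SE 0.47, adjusted p = 0.204), or at 4 weeks, 1.15 (SE 0.46, adjusted p = 0.0709). The call was lost without midbrain mock library 1 (1.17, adjusted p = 0.08501) and without midbrain 2-week library 2 (1.47, adjusted p = 0.107). It was gained at 4 weeks in midbrain without midbrain mock library 2 (1.9003, adjusted p = 0.0114), and at 4 weeks in cortex without cortex mock library 2 (1.68, adjusted p = 0.02501). Other settings gave a call at 4 weeks in midbrain, with mock library 2 of both regions left out (1.905, adjusted p = 1.64e-04) and with no count filter (1.03, adjusted p = 0.0223). In cortex P2ry12 passed at 2 weeks with mock library 2 of both regions left out (1.33, adjusted p = 0.00311). It passed at 4 weeks in cortex with mock library 2 of both regions left out (1.68, adjusted p = 2.79e-04) and with no count filter (1.09, adjusted p = 0.0122). P2ry12 and P2ry13 both lie within Med12l on the opposite strand, and the sources used here do not state if counting used strand. Reads of P2ry12 and of Med12l can then not be told apart; Med12l itself had 0.487 to 1.35 CPM in shPTB and 0.385 to 2.56 CPM in mock libraries. With transcript length offsets the P2ry12 value turned to -0.024 (adjusted p = 0.965) in midbrain at 4 weeks, -0.37 (adjusted p = 0.473) in cortex at 2 weeks and -0.67 (adjusted p = 0.181) in cortex at 4 weeks, and in midbrain at 2 weeks it was 0.28 (adjusted p = 0.591). Scaled to total reads, its midbrain 2-week value was 1.08 (adjusted p = 0.0521).

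The 3 chains of C1q, which opens the classical complement pathway and in brain comes mainly from microglia, fell together. C1qb, the most abundant, had 20.03 and 17.1 CPM at 2 weeks and 6.63 and 10.4 at 4 weeks in midbrain shPTB libraries, against 852 and 1116 in midbrain mock libraries. In cortex C1qb had 39.5 and 42.4 CPM at 2 weeks and 13.7 and 14.2 at 4 weeks in cortex shPTB libraries, against 673 and 1202 in cortex mock libraries. The lowest mock library held more than the highest shPTB library in each region. C1qa had 1.92 and 1.43 CPM at 2 weeks and 1.11 and 0.402 at 4 weeks in midbrain shPTB libraries, against 142 and 108 in midbrain mock libraries. In cortex C1qa had 4.87 and 3.89 CPM at 2 weeks and 0.549 and 1.73 at 4 weeks in cortex shPTB libraries, against 143 and 112 in cortex mock libraries. C1qc had 1.24 and 0.331 CPM at 2 weeks and 0.414 and 0.402 at 4 weeks in midbrain shPTB libraries, against 95.2 and 95.7 in midbrain mock libraries. In cortex C1qc had 1.87 and 1.46 CPM at 2 weeks and 0.916 and 0.961 at 4 weeks in cortex shPTB libraries, against 106 and 89.8 in cortex mock libraries. The log2 fold changes of C1qa, C1qb and C1qc were -6.21, -5.73 and -6.91 at 2 weeks in midbrain (SE 0.38, 0.35 and 0.35), with adjusted p of at most 1.15e-06. At 4 weeks in midbrain they were -7.36, -6.85 and -7.83 (SE 0.42, 0.37 and 0.39). In cortex they were -4.87, -4.52 and -5.88 at 2 weeks (SE 0.35, 0.33 and 0.34) and -6.81, -6.07 and -6.69 at 4 weeks (SE 0.42, 0.36 and 0.37). Every adjusted p at those 3 points was at most 3.84e-06. The 3 genes lie side by side on chromosome 4.

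Of the 6 genes grouped as ITAM adaptors and paired receptors, 5 fell in every comparison with mock, and Clec4a1 did not. Tyrobp, the adaptor DAP12, had 17.3 and 15.4 CPM at 2 weeks and 3.73 and 2.68 at 4 weeks in midbrain shPTB libraries, against 186 and 284 in midbrain mock libraries. In cortex Tyrobp had 39.9 and 36.7 CPM at 2 weeks and 12.5 and 11.9 at 4 weeks in cortex shPTB libraries, against 183 and 278 in cortex mock libraries. Groups did not overlap, and the cortex shPTB libraries were above the midbrain ones of the same week. Tyrobp changed by a log2 fold of -3.84 (SE 0.28, adjusted p = 3.97e-06) at 2 weeks and -6.19 (SE 0.33, adjusted p = 3.90e-07) at 4 weeks in midbrain. In cortex Tyrobp changed by -2.59 (SE 0.27, adjusted p = 3.91e-05) and -4.24 (SE 0.29, adjusted p = 1.84e-06) at the same times. Trem2, the lipid-sensing receptor that signals through DAP12, had 1.58 and 1.99 CPM at 2 weeks and 0.414 and 0.536 at 4 weeks in midbrain shPTB libraries, against 46.2 and 46.7 in midbrain mock libraries. In cortex Trem2 had 2.43 and 2.11 CPM at 2 weeks and 0.916 and 1.15 at 4 weeks in cortex shPTB libraries, against 42.8 and 42.4 in cortex mock libraries. Its highest shPTB library was far below its lowest mock library. Trem2 changed by a log2 fold of -4.69 (SE 0.22, adjusted p = 2.89e-07) and -6.57 (SE 0.27, adjusted p = 1.19e-07) at 2 and 4 weeks in midbrain. In cortex Trem2 changed by -4.23 (SE 0.22, adjusted p = 4.31e-07) and -5.35 (SE 0.25, adjusted p = 2.60e-07) at the same times.

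Fcer1g, the gamma chain shared by Fc receptors, was the member with the highest level per transcript length in mock libraries, at 1178 TPM in midbrain and 1316 TPM in cortex on average. Fcer1g had 73.7 and 67.3 CPM at 2 weeks and 12.02 and 13.5 at 4 weeks in midbrain shPTB libraries, against 320.1 and 571 in midbrain mock libraries. In cortex Fcer1g had 115 and 121 CPM at 2 weeks and 17.6 and 14.8 at 4 weeks in cortex shPTB libraries, against 358 and 700.2 in cortex mock libraries. Every 2-week library stood between the 4-week and the mock libraries of its region. Fcer1g changed by a log2 fold of -2.66 (SE 0.34, adjusted p = 1.90e-04) at 2 weeks and -5.12 (SE 0.38, adjusted p = 3.78e-06) at 4 weeks in midbrain. In cortex Fcer1g changed by -2.17 (SE 0.33, adjusted p = 5.72e-04) and -5.03 (SE 0.38, adjusted p = 3.82e-06) at the same times. Fcgr3, a low-affinity receptor for immunoglobulin G that uses the gamma chain, had 8 and 13 reads at 2 weeks and 0 and 1 at 4 weeks in midbrain shPTB libraries, against 161 and 77 in midbrain mock libraries. In cortex Fcgr3 had 9 and 8 reads at 2 weeks and 3 and 5 at 4 weeks in cortex shPTB libraries, against 126 and 73 in cortex mock libraries. It changed by -2.54 (SE 0.43, adjusted p = 0.001298) at 2 weeks in midbrain on the log2 scale, and by -2.14 (SE 0.45, adjusted p = 0.00377) and -3.11 (SE 0.51, adjusted p = 6.82e-04) in cortex; at 4 weeks in midbrain, with 1 read, it was 103-fold lower (95% counting interval 18.3 to 4082, adjusted p = 5.22e-05). Cd33, an inhibitory sialic acid receptor, had 1.47 and 2.32 CPM at 2 weeks and 0.414 and 0.268 at 4 weeks in midbrain shPTB libraries, against 10.8 and 22.5 in midbrain mock libraries. In cortex Cd33 had 5.43 and 4.54 CPM at 2 weeks and 0.183 and 0.384 at 4 weeks in cortex shPTB libraries, against 15.2 and 30.2 in cortex mock libraries. Cd33 changed by a log2 fold of -3.12 (SE 0.46, adjusted p = 4.86e-04) and -5.56 (SE 0.61, adjusted p = 5.34e-05) at 2 and 4 weeks in midbrain and -2.18 (SE 0.43, adjusted p = 0.00257) at 2 weeks in cortex, where at 4 weeks it was 76.4-fold lower (95% counting interval 26.02 to 371, adjusted p = 3.63e-05).

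Clec4a1, a C-type lectin receptor of myeloid cells, rose at 2 weeks in both regions and did not pass against mock at 4 weeks. Clec4a1 had 18.9 and 15.2 CPM at 2 weeks and 1.796 and 2.28 at 4 weeks in midbrain shPTB libraries, against 2.604 and 5.07 in midbrain mock libraries. In cortex Clec4a1 had 30.1 and 28.4 CPM at 2 weeks and 4.03 and 3.46 at 4 weeks in cortex shPTB libraries, against 2.03 and 3.501 in cortex mock libraries. The 2-week libraries were above all other libraries of their region without overlap. Clec4a1 changed by a log2 fold of 2.16 (SE 0.33, adjusted p = 6.01e-04) at 2 weeks in midbrain and 3.42 (SE 0.34, adjusted p = 3.52e-05) at 2 weeks in cortex. At 4 weeks it was -0.899 (SE 0.39, adjusted p = 0.0866) in midbrain and 0.46 (SE 0.38, adjusted p = 0.372) in cortex, and neither passed. The midbrain 4-week difference passed without midbrain mock library 1 (-1.32, adjusted p = 0.0169). It passed too with mock library 1 of both regions left out (-1.31, adjusted p = 8.43e-04), with transcript length offsets (-1.06, adjusted p = 0.0126), with no count filter (-0.97, adjusted p = 0.0357) and when scaled to total reads (-1.73, adjusted p = 0.001299). The cortex 4-week difference passed with mock library 2 of both regions left out (0.88, adjusted p = 0.0304). Scaled to total reads the cortex 4-week value turned to -0.59 (adjusted p = 0.123). Both matches in the Clec4a1 sequence above lie upstream of its start and read GAGGAA on the strand opposite to the one printed.

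**Figure D3:**
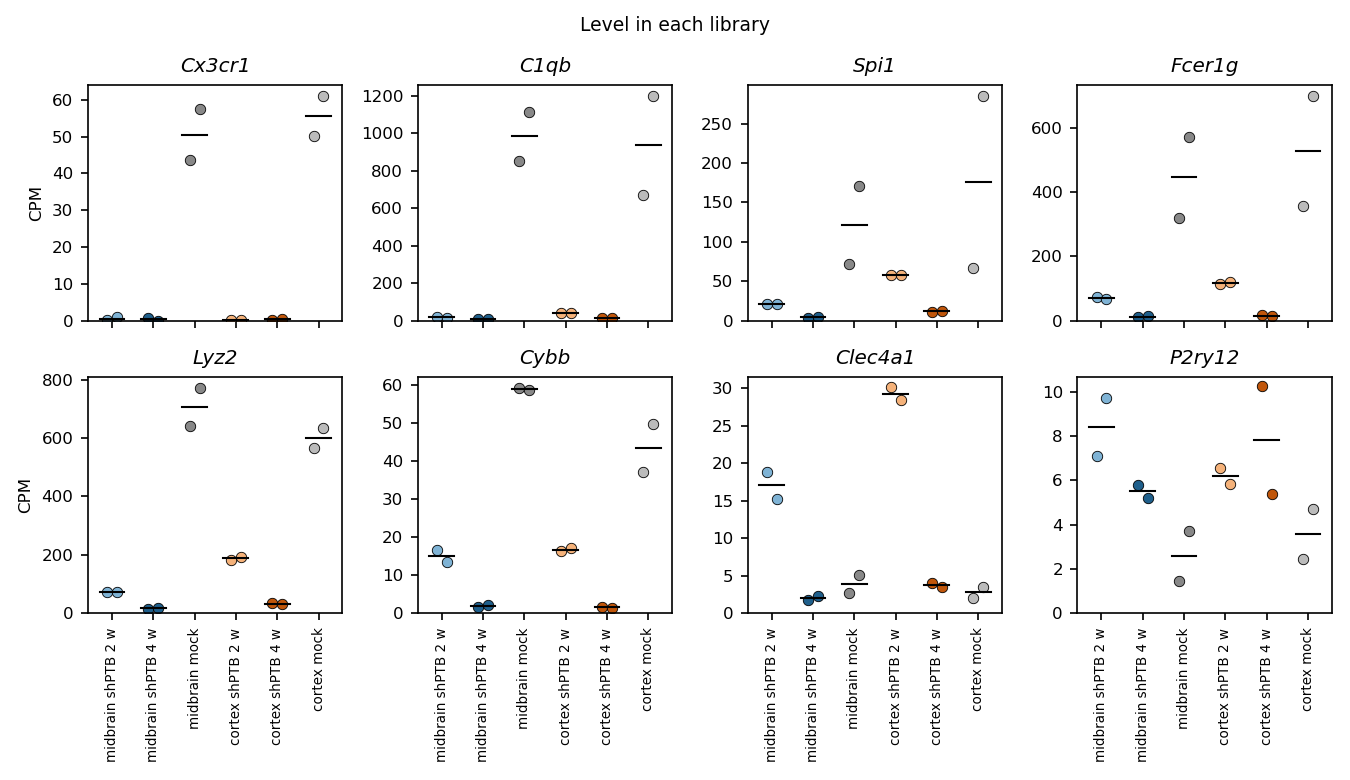
CPM of Cx3cr1, C1qb, Spi1, Fcer1g, Lyz2, Cybb, Clec4a1 and P2ry12 in each library, 1 point a library and a line at the group mean, for midbrain and cortex at 2 weeks, 4 weeks and mock. Cx3cr1 and C1qb are at the bottom of the scale in all shPTB groups, Fcer1g, Lyz2 and Cybb step down from 2 to 4 weeks, Clec4a1 peaks at 2 weeks (15.2 to 30.1 CPM), and P2ry12 is lowest in mock.

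All 5 leukocyte membrane genes fell in all 4 comparisons with mock. Ptprc, the phosphatase CD45, had 7 and 3 reads at 2 weeks and 3 and 1 at 4 weeks in midbrain shPTB libraries, against 172 and 76 in midbrain mock libraries. In cortex Ptprc had 9 and 4 reads at 2 weeks and 1 and 0 at 4 weeks in cortex shPTB libraries, against 184 and 85 in cortex mock libraries. Ptprc changed by a log2 fold of -3.64 (SE 0.59, adjusted p = 9.56e-04) and -4.65 (SE 0.69, adjusted p = 4.21e-04) at 2 and 4 weeks in midbrain and -2.93 (SE 0.57, adjusted p = 0.00248) at 2 weeks in cortex, and with 1 read at 4 weeks in cortex it was 96.3-fold lower (95% counting interval 17.1 to 3819, adjusted p = 2.18e-04). Laptm5, a lysosomal membrane protein of blood cells, had 9 and 6 reads at 2 weeks and 1 and 2 at 4 weeks in midbrain shPTB libraries, against 298 and 123 in midbrain mock libraries. In cortex Laptm5 had 6 and 9 reads at 2 weeks and 1 and 2 at 4 weeks in cortex shPTB libraries, against 424 and 124 in cortex mock libraries. Mock library 1 held the most reads of Ptprc and Laptm5 in both regions. Laptm5 changed by -3.83 (SE 0.56, adjusted p = 4.79e-04) at 2 weeks in midbrain and -3.72 (SE 0.56, adjusted p = 4.89e-04) at 2 weeks in cortex on the log2 scale, and at 4 weeks was 60.7-fold lower (95% counting interval 20.6 to 295, adjusted p = 1.29e-04) in midbrain and 65.4-fold lower (95% counting interval 22.3 to 318, adjusted p = 1.03e-04) in cortex.

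Itgam, the integrin chain CD11b, had 1 and 1 reads at 2 weeks and 0 and 0 at 4 weeks in midbrain shPTB libraries, against 28 and 20 in midbrain mock libraries. In cortex Itgam had 1 and 1 reads at 2 weeks and 0 and 2 at 4 weeks in cortex shPTB libraries, against 37 and 20 in cortex mock libraries. Its reads were few in all libraries, and it was 12.6-fold lower (95% counting interval 3.31 to 107, adjusted p = 0.009903) at 2 weeks and at least 6.92-fold lower (adjusted p = 0.00282) at 4 weeks in midbrain, and 11.01-fold lower (95% counting interval 2.91 to 93.1, adjusted p = 0.0119) and 10.2-fold lower (95% counting interval 2.699 to 86.3, adjusted p = 0.0124) in cortex. The midbrain 2-week call of Itgam ended without midbrain 2-week library 1 (-3.53, adjusted p = 0.07603) and without midbrain 2-week library 2 (-3.49, adjusted p = 0.0782). In cortex its 2-week call ended without cortex mock library 1 (-3.11, adjusted p = 0.0534), without cortex 2-week library 1 (-3.44, adjusted p = 0.07103) and without cortex 2-week library 2 (-3.25, adjusted p = 0.0899), and its 4-week call without cortex mock library 1 (-3.002, adjusted p = 0.05605) and without cortex 4-week library 1 (-2.26, adjusted p = 0.0808). DESeq2 called neither cortex difference of Itgam (adjusted p = 0.0552 at 2 weeks and 0.0603 at 4 weeks). Cd53, a tetraspanin of leukocytes, had 5 and 7 reads at 2 weeks and 0 and 0 at 4 weeks in midbrain shPTB libraries, against 45 and 61 in midbrain mock libraries. In cortex Cd53 had 7 and 4 reads at 2 weeks and 1 and 3 at 4 weeks in cortex shPTB libraries, against 87 and 72 in cortex mock libraries. It changed by a log2 fold of -2.22 (SE 0.49, adjusted p = 0.00715) at 2 weeks in midbrain, a call that ended without midbrain 2-week library 1 (-2.02, adjusted p = 0.0698), and was at least 15.3-fold lower (adjusted p = 2.54e-04) at 4 weeks. In cortex Cd53 changed by -2.47 (SE 0.49, adjusted p = 0.00366) at 2 weeks and -3.796 (SE 0.59, adjusted p = 6.75e-04) at 4 weeks. Ms4a7, a membrane protein of macrophages, had 1.81 and 1.88 CPM at 2 weeks and 0.829 and 0.402 at 4 weeks in midbrain shPTB libraries, against 14.3 and 20.7 in midbrain mock libraries. In cortex Ms4a7 had 6.36 and 4.22 CPM at 2 weeks and 0.549 and 1.15 at 4 weeks in cortex shPTB libraries, against 13.3 and 15.1 in cortex mock libraries. Ms4a7 changed by a log2 fold of -3.24 (SE 0.34, adjusted p = 4.63e-05) and -4.81 (SE 0.405, adjusted p = 8.32e-06) at 2 and 4 weeks in midbrain. In cortex Ms4a7 changed by -1.43 (SE 0.31, adjusted p = 0.00475) and -4.05 (SE 0.41, adjusted p = 2.74e-05) at the same times. The cortex 2-week call of Ms4a7 ended without cortex 2-week library 2 (-1.16, adjusted p = 0.0659).

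The 2 genes of LPS sensing differed. Ly86, the MD-1 partner of a Toll-like receptor homologue, had 9 and 3 reads at 2 weeks and 0 and 4 at 4 weeks in midbrain shPTB libraries, against 273 and 285 in midbrain mock libraries. In cortex Ly86 had 2 and 3 reads at 2 weeks and 2 and 0 at 4 weeks in cortex shPTB libraries, against 207 and 191 in cortex mock libraries. Ly86 changed by a log2 fold of -4.597 (SE 0.56, adjusted p = 1.34e-04) and -5.86 (SE 0.66, adjusted p = 6.28e-05) at 2 and 4 weeks in midbrain and -4.93 (SE 0.65, adjusted p = 2.04e-04) at 2 weeks in cortex, and at 4 weeks in cortex it was 71.3-fold lower (95% counting interval 19.6 to 590.4, adjusted p = 1.10e-04). Without midbrain 4-week library 2, which held all 4 reads of its group, the midbrain 4-week value was -10.39 (adjusted p = 3.90e-04). Cd14, the co-receptor that hands LPS to TLR4, was low throughout, with 9 and 5 reads at 2 weeks and 2 and 2 at 4 weeks in midbrain shPTB libraries, against 13 and 10 in midbrain mock libraries. In cortex Cd14 had 10 and 10 reads at 2 weeks and 1 and 1 at 4 weeks in cortex shPTB libraries, against 10 and 3 in cortex mock libraries. In CPM the midbrain 2-week and mock libraries overlapped, and the cortex 2-week libraries lay above cortex mock. Cd14 passed the count filter only through those cortex 2-week libraries, so its rise there carries no separate weight. It rose at 2 weeks in cortex, 2.01 (SE 0.601, adjusted p = 0.0233) on the log2 scale, a call that ended without cortex mock library 2 (1.56, adjusted p = 0.118), without cortex 2-week library 1 (1.91, adjusted p = 0.116) and without cortex 2-week library 2 (2.11, adjusted p = 0.0888). The same call of Cd14 was lost with DESeq2 (2.05, adjusted p = 0.108), with mock library 2 of both regions left out (1.56, adjusted p = 0.115), with no count filter (1.94, adjusted p = 0.0695) and when scaled to total reads (1.24, adjusted p = 0.136). The other values did not pass: 0.21 (SE 0.59, adjusted p = 0.808) and -1.27 (SE 0.72, adjusted p = 0.181) on the log2 scale at 2 and 4 weeks in midbrain, and 2.33-fold lower (95% counting interval 0.527 to 21.2, adjusted p = 0.339) at 4 weeks in cortex. The midbrain 4-week difference of Cd14 passed when scaled to total reads (-2.12, adjusted p = 0.0357). The midbrain 2-week value turned to -0.29 (adjusted p = 0.841) without midbrain 2-week library 1 and to -0.45 (adjusted p = 0.577) when scaled to total reads.

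Among the 7 genes of the phagosome, lysosome and oxidase, all fell at 2 weeks in midbrain and at 4 weeks in cortex, and Cyba was the 1 that did not pass at the other 2 points. Lyz2, the lysozyme of macrophages, had 73.2 and 70.4 CPM at 2 weeks and 14.9 and 18.2 at 4 weeks in midbrain shPTB libraries, against 641 and 773 in midbrain mock libraries. In cortex Lyz2 had 182 and 193 CPM at 2 weeks and 34.2 and 30.2 at 4 weeks in cortex shPTB libraries, against 565 and 635 in cortex mock libraries. Cortex shPTB libraries held more Lyz2 than midbrain ones at both times, and all were far below mock. Lyz2 changed by a log2 fold of -3.299 (SE 0.2003, adjusted p = 1.15e-06) at 2 weeks and -5.41 (SE 0.22, adjusted p = 1.19e-07) at 4 weeks in midbrain. In cortex Lyz2 changed by -1.68 (SE 0.19, adjusted p = 7.18e-05) and -4.22 (SE 0.21, adjusted p = 3.17e-07) at the same times. Lyz2 shares 36.2% of the 31-base words of its last 500 bases with other genes, among them its paralog Lyz1, which held 0 to 10 reads a library. Cd68, a lysosomal glycoprotein of macrophages, had 14.6 and 12.7 CPM at 2 weeks and 20.2 and 15.4 at 4 weeks in midbrain shPTB libraries, against 98.03 and 112 in midbrain mock libraries. In cortex Cd68 had 25.5 and 17.2 CPM at 2 weeks and 6.23 and 8.84 at 4 weeks in cortex shPTB libraries, against 120.03 and 117 in cortex mock libraries. In midbrain Cd68 was no lower at 4 weeks than at 2 weeks, and in cortex it was. Cd68 changed by a log2 fold of -2.94 (SE 0.24, adjusted p = 9.57e-06) and -2.56 (SE 0.24, adjusted p = 1.84e-05) at 2 and 4 weeks in midbrain. In cortex Cd68 changed by -2.48 (SE 0.24, adjusted p = 2.74e-05) and -3.98 (SE 0.27, adjusted p = 1.46e-06) at the same times.

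Ctss, the cysteine protease cathepsin S, had 4 and 9 reads at 2 weeks and 0 and 0 at 4 weeks in midbrain shPTB libraries, against 337 and 590 in midbrain mock libraries. In cortex Ctss had 8 and 6 reads at 2 weeks and 0 and 4 at 4 weeks in cortex shPTB libraries, against 410 and 398 in cortex mock libraries. It changed by a log2 fold of -5.25 (SE 0.58, adjusted p = 1.18e-04) at 2 weeks in midbrain and was at least 134-fold lower (adjusted p = 3.88e-05) at 4 weeks. In cortex it changed by -4.49 (SE 0.57, adjusted p = 2.62e-04) at 2 weeks and -6.16 (SE 0.699, adjusted p = 9.64e-05) at 4 weeks. All 4 cortex 4-week reads were in library 2, and without that library the value was -11.16 (adjusted p = 6.88e-04). Pld4, an endolysosomal nuclease, had 9 and 8 reads at 2 weeks and 0 and 0 at 4 weeks in midbrain shPTB libraries, against 266 and 261 in midbrain mock libraries. In cortex Pld4 had 10 and 12 reads at 2 weeks and 2 and 2 at 4 weeks in cortex shPTB libraries, against 344 and 254 in cortex mock libraries. It changed by -4.02 (SE 0.26, adjusted p = 3.57e-06) at 2 weeks in midbrain, -3.39 (SE 0.25, adjusted p = 8.15e-06) at 2 weeks in cortex and -5.696 (SE 0.33, adjusted p = 1.21e-06) at 4 weeks in cortex on the log2 scale, and at 4 weeks in midbrain it was at least 75.96-fold lower (adjusted p = 6.42e-07). Mpeg1, the pore-forming perforin-2, had 0 and 5 reads at 2 weeks and 1 and 2 at 4 weeks in midbrain shPTB libraries, against 428 and 201 in midbrain mock libraries. In cortex Mpeg1 had 8 and 4 reads at 2 weeks and 3 and 2 at 4 weeks in cortex shPTB libraries, against 463 and 166 in cortex mock libraries. Mpeg1 changed by a log2 fold of -5.96 (SE 0.71, adjusted p = 1.22e-04) at 2 weeks in midbrain, and -10.49 (adjusted p = 6.13e-04) without midbrain 2-week library 2, which held all 5 reads. At 4 weeks in midbrain Mpeg1 was 90.7-fold lower (95% counting interval 30.9 to 441, adjusted p = 1.07e-04), and in cortex it changed by -4.24 (SE 0.62, adjusted p = 4.39e-04) and -5.39 (SE 0.72, adjusted p = 1.82e-04) at 2 and 4 weeks.

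Cybb and Cyba encode the heavy and light chains of the cytochrome of the phagocyte NADPH oxidase. Cybb had 16.6 and 13.5 CPM at 2 weeks and 1.66 and 2.14 at 4 weeks in midbrain shPTB libraries, against 59.3 and 58.7 in midbrain mock libraries. In cortex Cybb had 16.3 and 17.04 CPM at 2 weeks and 1.65 and 1.35 at 4 weeks in cortex shPTB libraries, against 37.1 and 49.8 in cortex mock libraries. At 2 weeks it held a larger part of its mock level than most members. Cybb changed by a log2 fold of -1.97 (SE 0.205, adjusted p = 4.63e-05) and -4.95 (SE 0.26, adjusted p = 3.61e-07) at 2 and 4 weeks in midbrain. In cortex Cybb changed by -1.38 (SE 0.21, adjusted p = 4.71e-04) and -4.84 (SE 0.27, adjusted p = 6.10e-07) at the same times. Cyba had 3.06 and 3.42 CPM at 2 weeks and 5.11 and 4.15 at 4 weeks in midbrain shPTB libraries, against 12.2 and 6.61 in midbrain mock libraries. In cortex Cyba had 5.24 and 2.76 CPM at 2 weeks and 0.733 and 0.769 at 4 weeks in cortex shPTB libraries, against 11.4 and 4.61 in cortex mock libraries. It overlaps the annotated gene Gm20388, and cortex 2-week library 1 lay above cortex mock library 2. Cyba changed by a log2 fold of -1.53 (SE 0.46, adjusted p = 0.0259) at 2 weeks in midbrain, lost without midbrain mock library 1 (-1.04, adjusted p = 0.157), without midbrain 2-week library 1 (-1.46, adjusted p = 0.1401) and without midbrain 2-week library 2 (-1.62, adjusted p = 0.111). It was lost too with transcript length offsets (-1.11, adjusted p = 0.134). It was -1.02 (SE 0.45, adjusted p = 0.0927) at 4 weeks in midbrain and -1.02 (SE 0.47, adjusted p = 0.114) at 2 weeks in cortex, neither of which passed, and -3.405 (SE 0.61, adjusted p = 0.00128) at 4 weeks in cortex. The midbrain 4-week difference passed without midbrain mock library 2 (-1.39, adjusted p = 0.0314), and the cortex 2-week difference without cortex mock library 2 (-1.53, adjusted p = 0.0122). Under other settings the midbrain 4-week difference of Cyba passed with mock library 2 of both regions left out (-1.39, adjusted p = 8.55e-05), with no count filter (-1.09, adjusted p = 0.010001) and when scaled to total reads (-1.92, adjusted p = 0.0149). The cortex 2-week one passed with mock library 2 of both regions left out (-1.53, adjusted p = 7.56e-05), with no count filter (-1.099, adjusted p = 0.0155) and when scaled to total reads (-1.84, adjusted p = 0.02395).

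The chemokine Ccl3, which draws leukocytes, was above or near mock at 2 weeks and below it at 4 weeks. Ccl3 had 9.73 and 10.8 CPM at 2 weeks and 0.829 and 0.402 at 4 weeks in midbrain shPTB libraries, against 4.07 and 6.87 in midbrain mock libraries. In cortex Ccl3 had 17.4 and 17.04 CPM at 2 weeks and 1.65 and 1.35 at 4 weeks in cortex shPTB libraries, against 9.12 and 13.5 in cortex mock libraries. The 4-week libraries lay below all others without overlap. Ccl3 rose at 2 weeks in midbrain, 0.91 (SE 0.2998, adjusted p = 0.0393), and its value in cortex was 0.61 (SE 0.29, adjusted p = 0.1295), which did not pass. At 4 weeks it fell, by a log2 fold change of -3.13 (SE 0.43, adjusted p = 2.65e-04) in midbrain and -2.902 (SE 0.38, adjusted p = 1.71e-04) in cortex. The midbrain 2-week call ended without midbrain mock library 1 (0.57, adjusted p = 0.223), without midbrain 2-week library 1 (0.98, adjusted p = 0.115) and without midbrain 2-week library 2 (0.83, adjusted p = 0.174), and also with DESeq2 (0.88, adjusted p = 0.104), with only the groups compared in the fit (0.92, adjusted p = 0.08696) and when scaled to total reads (0.27, adjusted p = 0.408). The cortex 2-week difference passed without cortex mock library 2 (0.91, adjusted p = 0.04796), and turned to -0.091 (adjusted p = 0.784) when scaled to total reads. Both 4-week calls of Ccl3 were lost with transcript length offsets, at -0.61 (adjusted p = 0.681) in midbrain and 0.064 (adjusted p = 0.966) in cortex, where the value turned. Its 2-week values with those offsets were 3.09 (adjusted p = 0.0215) in midbrain and 2.796 (adjusted p = 0.0261) in cortex. Ccl4, a close relative of Ccl3, had 1 and 1 reads at 2 weeks and 0 and 0 at 4 weeks in midbrain shPTB libraries, against 12 and 12 in midbrain mock libraries. In cortex Ccl4 had 1 and 2 reads at 2 weeks and 0 and 0 at 4 weeks in cortex shPTB libraries, against 14 and 13 in cortex mock libraries. Ccl4 was 6.32-fold lower (95% counting interval 1.57 to 55.1, adjusted p = 0.0467) at 2 weeks and at least 3.46-fold lower (adjusted p = 0.00913) at 4 weeks in midbrain, and in cortex 3.48-fold lower (95% counting interval 1.07 to 17.9, adjusted p = 0.112), which did not pass, and at least 3.22-fold lower (adjusted p = 0.00947). The midbrain calls of Ccl4 ended without midbrain mock library 1 (-2.65, adjusted p = 0.123), without midbrain mock library 2 (-2.41, adjusted p = 0.119), without midbrain 2-week library 1 (-2.56, adjusted p = 0.206) and without midbrain 2-week library 2 (-2.52, adjusted p = 0.213) at 2 weeks. They ended without midbrain 4-week library 1 (-5.87, adjusted p = 0.0584) and without midbrain 4-week library 2 (-5.87, adjusted p = 0.0588) at 4 weeks. The midbrain 2-week call ended as well with DESeq2 (-2.696, adjusted p = 0.253), with mock library 1 of both regions left out (-2.63, adjusted p = 0.103), with mock library 2 of both regions left out (-2.403, adjusted p = 0.128), with no count filter (-2.61, adjusted p = 0.111) and with only the groups compared in the fit (-2.56, adjusted p = 0.05001), its values here and below being fitted log2 fold changes. The cortex 4-week call of Ccl4 ended without cortex 4-week library 1 (-6.26, adjusted p = 0.0571) and without cortex 4-week library 2 (-6.27, adjusted p = 0.0537). The cortex 2-week difference of Ccl4 passed with transcript length offsets (-2.48, adjusted p = 0.03901) and when scaled to total reads (-2.48, adjusted p = 0.0258).

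Ltc4s, leukotriene C4 synthase, had 0 and 4 reads at 2 weeks and 4 and 3 at 4 weeks in midbrain shPTB libraries, against 225 and 210 in midbrain mock libraries. In cortex Ltc4s had 1 and 1 reads at 2 weeks and 3 and 2 at 4 weeks in cortex shPTB libraries, against 457 and 518 in cortex mock libraries. It changed by a log2 fold of -5.77 (SE 0.54, adjusted p = 2.34e-05) and -4.72 (SE 0.498, adjusted p = 4.28e-05) at 2 and 4 weeks in midbrain and -6.14 (SE 0.52, adjusted p = 7.25e-06) at 4 weeks in cortex, and at 2 weeks in cortex it was 188-fold lower (95% counting interval 51.99 to 1557, adjusted p = 6.14e-06). All 4 midbrain 2-week reads were in library 2, without which the value was -9.9996 (adjusted p = 6.75e-05). Aif1, which encodes the actin-binding protein Iba1 used to stain microglia, had 1 and 2 reads at 2 weeks and 1 and 0 at 4 weeks in midbrain shPTB libraries, against 172 and 201 in midbrain mock libraries. In cortex Aif1 had 1 and 1 reads at 2 weeks and 1 and 1 at 4 weeks in cortex shPTB libraries, against 181 and 158 in cortex mock libraries. At 0 to 2 reads in every shPTB library, Aif1 was 65.4-fold lower (95% counting interval 22.2 to 319, adjusted p = 6.14e-06) at 2 weeks and 161-fold lower (95% counting interval 28.8 to 6387, adjusted p = 4.62e-06) at 4 weeks in midbrain, and 65.5-fold lower (95% counting interval 17.99 to 543, adjusted p = 1.11e-05) and 60.7-fold lower (95% counting interval 16.7 to 503, adjusted p = 9.19e-06) in cortex.

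The time course separated the members. Set against the mean of the mock libraries, the median member held 7.21% at 2 weeks and 1.33% at 4 weeks in midbrain, and 11.4% at 2 weeks and 2.38% at 4 weeks in cortex. Cx3cr1 was already at 1.097% of mock at 2 weeks in midbrain and 0.4598% in cortex, and Fcrls at 0.826% and 0.574%. C1qb stood at 1.89% and 4.37%. At the other end, Cybb held 25.5% of mock at 2 weeks in midbrain and 38.3% in cortex, Fcer1g 15.8% and 22.3%, and Spi1 17.5% and 33.1%. By 4 weeks Cybb was at 3.22% and 3.44%, Fcer1g at 2.87% and 3.06%, and Spi1 at 3.68% and 6.82%.

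**Figure D4:**
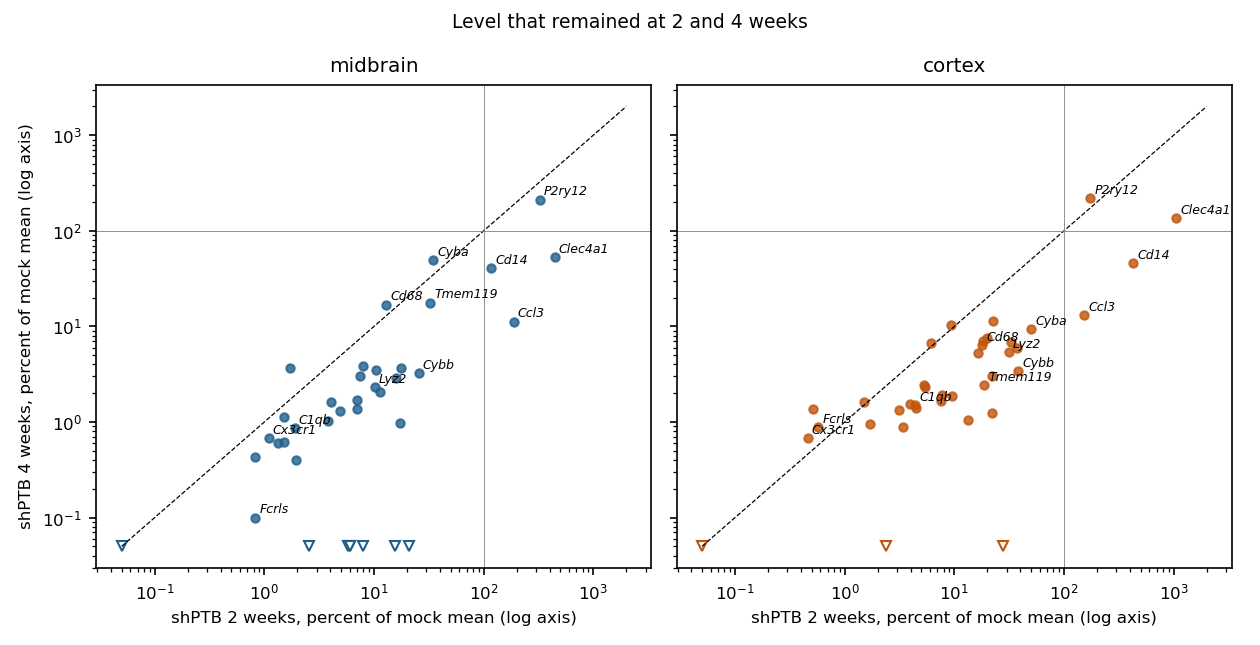
Level of each tested member at 4 weeks (y axis) against 2 weeks (x axis), both as percent of the mean of mock on log axes, for midbrain and cortex. The dashed line marks equal levels, grey lines 100% of mock, and open triangles members with 0 reads in a group, drawn at 0.05%. Most points lie under the dashed line, with medians of 1.33% at 4 weeks and 7.21% at 2 weeks in midbrain.

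Tested directly, 11 of 38 members were lower at 4 weeks than at 2 weeks in midbrain, where 1.7% of all genes tested were lower (2.66% in either direction), and 13 of 38 in cortex, where 2.22% were lower (2.77% in either direction). None rose, with 0.958% and 0.548% of all genes higher. Csf1r, Tyrobp, Fcer1g, Clec4a1, Lyz2, Pld4, Cybb and Ccl3 passed in both regions. These are the receptor for CSF1, both ITAM adaptors, 3 products of the phagocytic compartment, a lectin receptor and a chemokine. Which members passed also depended on the reads left at 2 weeks, since those near the counting limit had little room to fall further. Over both 2-week libraries Cx3cr1 had 10 reads in midbrain and 3 in cortex, and Gpr34 had 0 in each region. In midbrain the log2 difference of 4 weeks minus 2 weeks was -4.04 (SE 0.42, adjusted p = 0.00117) for Ccl3, -3.06 (SE 0.37, adjusted p = 0.00306) for Clec4a1 and -2.97 (SE 0.26, adjusted p = 4.49e-04) for Cybb. It was -2.46 (SE 0.35, adjusted p = 0.00739) for Fcer1g, -2.35 (SE 0.31, adjusted p = 0.00449) for Tyrobp, -2.11 (SE 0.198, adjusted p = 6.65e-04) for Lyz2 and -1.91 (SE 0.35, adjusted p = 0.0203) for Csf1r. In cortex it was -3.51 (SE 0.39, adjusted p = 9.54e-04) for Ccl3, -3.46 (SE 0.28, adjusted p = 2.77e-04) for Cybb and -2.96 (SE 0.36, adjusted p = 0.00176) for Clec4a1. It was -2.86 (SE 0.35, adjusted p = 0.001904) for Fcer1g, -2.54 (SE 0.198, adjusted p = 2.77e-04) for Lyz2, -2.31 (SE 0.43, adjusted p = 0.0251) for Pld4, -2.001 (SE 0.32, adjusted p = 0.00892) for Csf1r and -1.65 (SE 0.28, adjusted p = 0.0116) for Tyrobp. With no read at 4 weeks in midbrain, Pld4 was at least 4.66-fold lower than at 2 weeks (adjusted p = 0.00746).

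In midbrain alone, Trem2 passed at -1.88 (SE 0.34, adjusted p = 0.0252), Fcrls was 8.22-fold lower (95% counting interval 1.996 to 72.5, adjusted p = 0.0443) and Fcgr3 was 17.3-fold lower (95% counting interval 2.77 to 714, adjusted p = 0.0447). In cortex alone, Tmem119 passed at -2.93 (SE 0.47, adjusted p = 0.00887), C1qb at -1.55 (SE 0.31, adjusted p = 0.0244), Ms4a7 at -2.62 (SE 0.45, adjusted p = 0.0125) and Cd68 at -1.499 (SE 0.26, adjusted p = 0.0133), and Cd33 was 17.6-fold lower (95% counting interval 5.73 to 87.9, adjusted p = 0.0183). Passing in 1 region only does not show a difference between regions. These calls depend on both libraries of each group being present. Leaving out midbrain 2-week library 1 or 2 left 5 or 7 members called in midbrain, and leaving out midbrain 4-week library 1 or 2 left 3. Leaving out cortex 2-week library 1 or 2 left 6 or 7 in cortex, and leaving out cortex 4-week library 1 or 2 left 3.

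Lyz2, Cybb and Ccl3 passed in both regions whichever library was left out. Their midbrain values then ran over -2.27 to -1.97 (adjusted p up to 0.03499) for Lyz2, -3.17 to -2.8003 (adjusted p up to 0.0189) for Cybb and -4.63 to -3.61 (adjusted p up to 0.04299) for Ccl3. In cortex they ran over -2.63 to -2.45 (adjusted p up to 0.0112) for Lyz2, -3.62 to -3.32 (adjusted p up to 0.0112) for Cybb and -3.67 to -3.37 (adjusted p up to 0.03502) for Ccl3. Each other call was lost without at least 1 library of the groups compared, while its direction held. In midbrain the values without 1 library ran over -2.18 to -1.58 (adjusted p up to 0.198) for Csf1r, -2.602 to -2.13 (adjusted p up to 0.115) for Tyrobp, -2.08 to -1.704 (adjusted p up to 0.2904) for Trem2, -2.55 to -2.38 (adjusted p up to 0.129) for Fcer1g and -3.24 to -2.89 (adjusted p up to 0.0788) for Clec4a1. In cortex they ran over -2.13 to -1.87 (adjusted p up to 0.149) for Csf1r, -3.13 to -2.69 (adjusted p up to 0.118) for Tmem119, -1.598 to -1.495 (adjusted p up to 0.239) for C1qb, -1.71 to -1.59 (adjusted p up to 0.149) for Tyrobp and -2.99 to -2.74 (adjusted p up to 0.0587) for Fcer1g. They ran over -3.07 to -2.85 (adjusted p up to 0.0518) for Clec4a1, -3.23 to -2.18 (adjusted p up to 0.166) for Ms4a7, -1.77 to -1.19 (adjusted p up to 0.184) for Cd68 and -2.34 to -2.28 (adjusted p up to 0.251) for Pld4 in cortex. Other settings ended calls too. The call of Ccl3 was lost with transcript length offsets in midbrain (-3.703, adjusted p = 0.104) and in cortex (-2.73, adjusted p = 0.189). That of Csf1r was lost in midbrain (-1.86, adjusted p = 0.0737) and in cortex (-1.67, adjusted p = 0.0891). The same offsets ended the calls of Trem2 (-1.66, adjusted p = 0.0598) and Fcrls (-3.12, adjusted p = 0.0759) in midbrain, and of C1qb (-1.32, adjusted p = 0.158) and Cd68 (-1.51, adjusted p = 0.226) in cortex. DESeq2 did not call Trem2 (-1.8996, adjusted p = 0.0851), Fcrls (-3.03, adjusted p = 0.117) and Fcgr3 (-4.098, adjusted p = 0.139) in midbrain or Pld4 (-2.35, adjusted p = 0.114) in cortex. Fcgr3 was also lost when scaled to total reads (-4.01, adjusted p = 0.05197). Values in parentheses are fitted log2 differences. Lyz2 and Cybb passed in both regions under every alternative run.

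The makeup of the member reads also differed between groups, given here as shares with no test. The 3 C1q chains made 7.501% and 6.47% of all member reads at 2 weeks and 8.89% and 12.6% at 4 weeks in midbrain shPTB libraries, against 36.5% and 33.3% in midbrain mock libraries. In cortex they made 7.87% and 8.14% at 2 weeks and 12.1% and 14.01% at 4 weeks, against 32.2% and 33.5% in mock. Every shPTB library was below every mock library. Lyz2 and Fcer1g together made 47.5% and 47.2% at 2 weeks and 29.4% and 35.5% at 4 weeks in midbrain, against 32.2% and 33.96% in mock. In cortex they made 50.5% and 53.6% at 2 weeks and 41.3% and 37.3% at 4 weeks, against 32.2% and 31.9% in mock, so their share was highest at 2 weeks. Clec4a1 made 6.11% and 5.22% at 2 weeks in midbrain and 5.13% and 4.84% in cortex, against 0.0872% and 0.128% in midbrain mock and 0.07098% and 0.0836% in cortex mock. Cd68 made 21.99% and 17.2% of member reads at 4 weeks in midbrain, and 3.28% and 2.83% in midbrain mock. Shares of a fixed list must sum to 100%, so the rise of 1 member's share lowers the others.

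Between the regions, no member passed in mock cultures, where 2.19% of all genes tested did (1.25% higher and 0.938% lower). At an unadjusted p under 0.05 there were 3 members (Cybb, Ccl3 and Ltc4s), and DESeq2 called 1. Mock libraries of the same number deviated together across regions (correlation 0.716), which the main fit left in its spread. At 2 weeks, midbrain libraries were lower than cortex libraries for Tyrobp and Lyz2, with 2.94% of all genes called in either direction, 2.01% higher and 0.931% lower. The log2 difference of midbrain minus cortex was -1.22 (SE 0.27, adjusted p = 0.0338) for Tyrobp and -1.38 (SE 0.19, adjusted p = 0.00285) for Lyz2. The call of Tyrobp was lost without cortex 2-week library 1 (-1.16, adjusted p = 0.227), without cortex 2-week library 2 (-1.28, adjusted p = 0.185), without midbrain 2-week library 1 (-1.31, adjusted p = 0.201) and without midbrain 2-week library 2 (-1.14, adjusted p = 0.277). That of Lyz2 was lost without cortex 2-week library 2 (-1.34, adjusted p = 0.0591), without midbrain 2-week library 1 (-1.41, adjusted p = 0.0643) and without midbrain 2-week library 2 (-1.35, adjusted p = 0.0704). At 4 weeks 3 members were higher in midbrain, with 5.48% of all genes higher, and 3 were lower, with 2.51% lower and 7.99% called in either direction. The higher ones were Tmem119, 3.15 (SE 0.46, adjusted p = 0.00156), Cd68, 1.24 (SE 0.26, adjusted p = 0.0135), and Cyba, 2.61 (SE 0.65, adjusted p = 0.0325). The lower ones were Tyrobp, -1.92 (SE 0.32, adjusted p = 0.00348), and Lyz2, -0.96 (SE 0.197, adjusted p = 0.0122), and Fcrls, which was 8.96-fold lower (95% counting interval 2.03 to 81.8, adjusted p = 0.0223). Leaving out 1 library left 2 or 3 of the 6 called: Tmem119 passed each time, Tyrobp was lost without midbrain 4-week library 2 (-1.71, adjusted p = 0.0567), and Cd68 was lost without cortex 4-week library 1 (1.01, adjusted p = 0.163) and without midbrain 4-week library 1 (1.04, adjusted p = 0.1301). Lyz2 was lost without cortex 4-week library 1 (-0.86, adjusted p = 0.134), without cortex 4-week library 2 (-1.05, adjusted p = 0.0649), without midbrain 4-week library 1 (-0.82, adjusted p = 0.166) and without midbrain 4-week library 2 (-1.11, adjusted p = 0.0603). Cyba was lost without cortex 4-week library 1 (2.57, adjusted p = 0.205), without cortex 4-week library 2 (2.64, adjusted p = 0.185), without midbrain 4-week library 1 (2.45, adjusted p = 0.142) and without midbrain 4-week library 2 (2.74, adjusted p = 0.0899). Fcrls was lost without cortex 4-week library 1 (-2.71, adjusted p = 0.174), without cortex 4-week library 2 (-3.32, adjusted p = 0.0594), without midbrain 4-week library 1 (-3.07, adjusted p = 0.133) and without midbrain 4-week library 2 (-3.03, adjusted p = 0.138), the values of Fcrls in parentheses being fitted log2 differences. Cd68 (1.16, adjusted p = 0.299), Cyba (2.43, adjusted p = 0.0693) and Fcrls (-2.73, adjusted p = 0.0977) were lost with transcript length offsets. DESeq2 did not call Fcrls (-3.16, adjusted p = 0.0636).

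The difference between the regions' responses was tested as an interaction. At 2 weeks Lyz2 passed, with a midbrain response minus cortex response of -1.62 (SE 0.26, adjusted p = 0.0177) on the log2 scale, where 0.685% of all genes passed in either direction, 0.424% higher and 0.26% lower. At 4 weeks Tmem119 at 2.84 (SE 0.54, adjusted p = 0.0176), Tyrobp at -1.95 (SE 0.404, adjusted p = 0.0278) and Lyz2 at -1.196 (SE 0.27, adjusted p = 0.0412) passed, where 2.55% of all genes did, 1.9% higher and 0.644% lower. Tmem119 thus fell less in midbrain than in cortex, and Tyrobp and Lyz2 fell more. The 2-week call of Lyz2 was lost without cortex 2-week library 1 (-1.67, adjusted p = 0.116), without cortex 2-week library 2 (-1.57, adjusted p = 0.136), without midbrain 2-week library 1 (-1.65, adjusted p = 0.139) and without midbrain 2-week library 2 (-1.59, adjusted p = 0.165). The 4-week call of Tmem119 was lost without cortex 4-week library 1 (3.03, adjusted p = 0.115), without cortex 4-week library 2 (2.68, adjusted p = 0.127) and without midbrain 4-week library 1 (2.42, adjusted p = 0.0833). That of Tyrobp was lost without cortex 4-week library 1 (-1.92, adjusted p = 0.134), without cortex 4-week library 2 (-1.98, adjusted p = 0.111), without midbrain 4-week library 1 (-2.204, adjusted p = 0.0856) and without midbrain 4-week library 2 (-1.73, adjusted p = 0.177). That of Lyz2 at 4 weeks was lost without cortex 4-week library 1 (-1.099, adjusted p = 0.227), without cortex 4-week library 2 (-1.28, adjusted p = 0.129), without midbrain mock library 2 (-1.05, adjusted p = 0.0727), without midbrain 4-week library 1 (-1.06, adjusted p = 0.248) and without midbrain 4-week library 2 (-1.35, adjusted p = 0.119). With only the groups compared in the fit all 4 calls were lost, at -1.61 (adjusted p = 0.146) for Lyz2 at 2 weeks. The 4-week values were then 2.88 (adjusted p = 0.0555) for Tmem119, -1.92 (adjusted p = 0.1246) for Tyrobp and -1.16 (adjusted p = 0.209) for Lyz2. Among the 4 calls only that of Tyrobp passed with transcript length offsets. The others were lost, at -1.72 (adjusted p = 0.05505) for Lyz2 at 2 weeks and 2.72 (adjusted p = 0.0504) for Tmem119 and -1.38 (adjusted p = 0.0562) for Lyz2 at 4 weeks. The Ptbp1 level at 4 weeks also differed between the regions, by 0.85 (SE 0.21, adjusted p = 0.0276) on the log2 scale of midbrain minus cortex, and its part in these differences was not tested.

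Most other microglia and macrophage genes outside the list also fell, with the same limit from the count filter. Fcgr1 and Coro1a here, and Tlr7 and Mrc1 further on, passed it only through mock libraries and so had to differ. Counts over these lists carry no separate weight. Of 37 other microglia and macrophage genes 34 were tested, and 24 and 27 fell at 2 and 4 weeks in midbrain and 23 and 28 in cortex. Over all genes tested 14.7%, 20.4%, 17.6% and 20.9% were lower at 2 and 4 weeks in midbrain and at 2 and 4 weeks in cortex. In the same order 15.9%, 18.7%, 17.5% and 18.5% were higher, and these shares apply to the lists below as well. The median log2 fold changes of the 34 were -2.29 and -4.26 in midbrain and -1.82 and -3.80 in cortex. Among them Fcgr1, the high-affinity receptor for immunoglobulin G, had 0.113 and 0 CPM at 2 weeks and 0 and 0.134 at 4 weeks in midbrain shPTB libraries, against 8.57 and 6.48 in midbrain mock libraries. In cortex Fcgr1 had 0.187 and 0 CPM at 2 weeks and 0 and 0 at 4 weeks in cortex shPTB libraries, against 9.93 and 6.13 in cortex mock libraries. Coro1a, an actin regulator of leukocytes, had 0.113 and 0.331 CPM at 2 weeks and 0.138 and 0 at 4 weeks in midbrain shPTB libraries, against 14.8 and 10.5 in midbrain mock libraries. In cortex Coro1a had 0.374 and 0.487 CPM at 2 weeks and 0 and 0.384 at 4 weeks in cortex shPTB libraries, against 19.5 and 13.5 in cortex mock libraries. Csf3r, the receptor for the granulocyte growth factor, and Ccl6, a chemokine, rose at 2 weeks in both regions, and none of the 34 rose at 4 weeks. Csf3r, named here after its values were seen, had 4.41 and 3.97 CPM at 2 weeks and 1.24 and 0.536 at 4 weeks in midbrain shPTB libraries, against 1.25 and 0.642 in midbrain mock libraries. In cortex Csf3r had 3.18 and 2.597 CPM at 2 weeks and 1.099 and 0.576 at 4 weeks in cortex shPTB libraries, against 0.581 and 0.557 in cortex mock libraries. Csf3r passed the count filter only with its 2-week libraries, where it was highest, so its rise there carries no separate weight. Ccl6 had 36.9 and 31.6 CPM at 2 weeks and 11.2 and 10.8 at 4 weeks in midbrain shPTB libraries, against 9.39 and 14.8 in midbrain mock libraries. In cortex Ccl6 had 97.3 and 102 CPM at 2 weeks and 40.5 and 34.4 at 4 weeks in cortex shPTB libraries, against 21.2 and 34.4 in cortex mock libraries, so both, like Clec4a1, were highest at 2 weeks.

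Of 10 genes that signal downstream of the ITAM adaptors (kinases, phosphatases, a phospholipase, adaptors and an exchange factor) 9 were tested, and 7 and 9 fell at 2 and 4 weeks in midbrain and 7 and 8 in cortex, with none higher. Vav1, a guanine nucleotide exchange factor, had 0.113 and 0.552 CPM at 2 weeks and 0.138 and 0 at 4 weeks in midbrain shPTB libraries, against 11.8 and 12.3 in midbrain mock libraries. In cortex Vav1 had 2.62 and 1.95 CPM at 2 weeks and 0 and 0.384 at 4 weeks in cortex shPTB libraries, against 12.03 and 12.2 in cortex mock libraries. Its highest shPTB library lay below its lowest mock library in both regions. Ncf1, Ncf4 and Rac2, other genes of the phagocyte oxidase, each fell in all 4 comparisons. Ncf1, the cytosolic subunit of the complex, had 1.81 and 1.54 CPM at 2 weeks and 0.276 and 0.937 at 4 weeks in midbrain shPTB libraries, against 29.1 and 24.8 in midbrain mock libraries. In cortex Ncf1 had 4.31 and 4.71 CPM at 2 weeks and 0.916 and 2.11 at 4 weeks in cortex shPTB libraries, against 37.4 and 30.9 in cortex mock libraries. Of 11 Toll-like receptor genes 5 were tested, and 2 and 2 fell at 2 and 4 weeks in midbrain and 2 and 4 in cortex. Tlr7, a sensor of single-stranded RNA, had 0.113 and 0.1104 CPM at 2 weeks and 0.276 and 0 at 4 weeks in midbrain shPTB libraries, against 6.998 and 8.67 in midbrain mock libraries. In cortex Tlr7 had 0.187 and 0.325 CPM at 2 weeks and 0.183 and 0 at 4 weeks in cortex shPTB libraries, against 11.04 and 10.98 in cortex mock libraries, while Tlr3 rose at 4 weeks in midbrain, 1.07 (SE 0.32, adjusted p = 0.0206).

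Of 9 genes of macrophages at the brain's borders 5 were tested, and 4 and 5 fell at 2 and 4 weeks in midbrain and 4 and 4 in cortex. Mrc1, the mannose receptor, had 0.566 and 0.662 CPM at 2 weeks and 0 and 0.134 at 4 weeks in midbrain shPTB libraries, against 9.93 and 3.66 in midbrain mock libraries. In cortex Mrc1 had 0.374 and 0.325 CPM at 2 weeks and 0 and 0.384 at 4 weeks in cortex shPTB libraries, against 22.8 and 8.27 in cortex mock libraries. Pf4, a chemokine, was the 1 gene of the list that rose, at 2 weeks in cortex, 2.06 (SE 0.38, adjusted p = 0.00168). Of 12 genes known to be induced in disease-associated microglia 11 were tested, and 8 and 8 fell at 2 and 4 weeks in midbrain and 6 and 8 in cortex. Spp1, osteopontin, fell in all 4, by log2 fold changes of -4.53 and -4.503 in midbrain and -4.77 and -7.099 in cortex (SE 0.56, 0.58, 0.63 and 0.84). Apoe, which astrocytes also make in quantity, rose at 4 weeks, by 0.898 (SE 0.27, adjusted p = 0.02104) in midbrain and 0.76 (SE 0.27, adjusted p = 0.0413) in cortex.

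Ligands of the receptors on the list did not move as 1 group. Of 14 tested, 4 rose at 2 weeks and 4 at 4 weeks in midbrain, and 6 and 4 in cortex, while 3 and 4 fell in midbrain and 5 and 8 in cortex. Csf1, a ligand of CSF1R, had 28.7 and 26.2 CPM at 2 weeks and 23.3 and 21.7 at 4 weeks in midbrain shPTB libraries, against 21.4 and 21.2 in midbrain mock libraries. In cortex Csf1 had 26.4 and 27.4 CPM at 2 weeks and 22.3 and 19.02 at 4 weeks in cortex shPTB libraries, against 28.99 and 30.9 in cortex mock libraries. Il34, the other ligand of CSF1R, had 2.603 and 2.097 CPM at 2 weeks and 4.56 and 4.15 at 4 weeks in midbrain shPTB libraries, against 2.17 and 4.04 in midbrain mock libraries. In cortex Il34 had 1.498 and 1.95 CPM at 2 weeks and 0.366 and 0.576 at 4 weeks in cortex shPTB libraries, against 3.37 and 4.93 in cortex mock libraries. The log2 fold change of Csf1 was 0.37 (SE 0.16, adjusted p = 0.113) and 0.0798 (SE 0.17, adjusted p = 0.726) at 2 and 4 weeks in midbrain and -0.15 (SE 0.17, adjusted p = 0.499) and -0.53 (SE 0.17, adjusted p = 0.0268) in cortex. That of Il34 was -0.39 (SE 0.38, adjusted p = 0.453) and 0.49 (SE 0.36, adjusted p = 0.305) in midbrain and -1.25 (SE 0.41, adjusted p = 0.0365) and -3.103 (SE 0.52, adjusted p = 8.47e-04) in cortex. Cx3cl1, the ligand of CX3CR1, had log2 fold changes of 0.22 (SE 0.32, adjusted p = 0.632) and 0.76 (SE 0.32, adjusted p = 0.0834) in midbrain and 1.62 (SE 0.36, adjusted p = 0.00572) and 1.37 (SE 0.37, adjusted p = 0.0135) in cortex. Tgfb1, a cytokine needed for the microglial programme, fell in all 4, its log2 fold change lying between -4.11 at 4 weeks in cortex and -2.38 at 2 weeks in cortex. Complement genes other than the C1q chains were mixed: of 7 tested, 3 and 2 rose at 2 and 4 weeks in midbrain and 1 and 1 in cortex, as 1 and 1 fell in midbrain and 1 and 5 in cortex. C3, the substrate cleaved downstream of C1q, was the 1 gene of the 7 that rose in all 4 comparisons, by 3.904 (SE 0.28, adjusted p = 2.95e-06) and 4.48 (SE 0.28, adjusted p = 1.11e-06) at 2 and 4 weeks in midbrain. In cortex C3 changed by 3.11 (SE 0.27, adjusted p = 1.15e-05) and 1.86 (SE 0.25, adjusted p = 2.09e-04) at the same times. Serping1, the inhibitor of the C1 proteases, fell in 3 of the 4, by -0.97 (SE 0.17, adjusted p = 0.001203) at 4 weeks in midbrain and -1.97 (SE 0.18, adjusted p = 1.74e-05) and -4.49 (SE 0.22, adjusted p = 2.94e-07) at 2 and 4 weeks in cortex. C4b, a substrate of the C1 proteases whose reads can also belong to its close paralog C4a, fell at 2 weeks in midbrain, -0.86 (SE 0.26, adjusted p = 0.0255), and at 4 weeks in cortex, -1.79 (SE 0.28, adjusted p = 4.73e-04). Of 13 lysosomal genes that most cells express, 3 and 4 rose at 2 and 4 weeks in midbrain and 2 and 2 in cortex, while 0 and 2 fell in midbrain and 2 and 2 in cortex. Of all genes tested, 15.9% and 18.7% were higher in midbrain and 17.5% and 18.5% in cortex. Lower were 14.7% and 20.4% in midbrain and 17.6% and 20.9% in cortex. Several counts of the ligand, complement and lysosomal lists are near these shares.

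Markers of other cell types moved in the same comparisons. Of all genes tested, 14.7% and 20.4% were lower at 2 and 4 weeks in midbrain, and 17.6% and 20.9% in cortex. Higher were 15.9% and 18.7% in midbrain and 17.5% and 18.5% in cortex. A count of 2 of 10 genes is near these shares. Of 16 markers of other leukocytes, 1 (Cd79a) was tested, and the list summed to 0.6695 to 2.43 CPM in shPTB libraries and 0.174 to 0.642 CPM in mock libraries, with Cd3g, Cd8a, Ly6g, S100a8 and S100a9 at 0 reads in every library. Cd79a, a B-cell receptor subunit, held 1 to 11 reads a library and rose in cortex, by 3.54 (SE 0.82, adjusted p = 0.00666) and 2.79 (SE 0.88, adjusted p = 0.02595) on the log2 scale at 2 and 4 weeks. Cd79a passed the count filter only through shPTB libraries, so its rise carries no separate weight. The 5 red blood cell genes summed to 0 to 1.12 CPM in shPTB libraries, and to 0 in mock libraries. Proliferation genes summed to 118 to 185 CPM in shPTB libraries and 403 to 746 CPM in mock libraries, and 13, 14, 13 and 14 of 15 fell at 2 and 4 weeks in midbrain and at 2 and 4 weeks in cortex. Fibroblast and pericyte genes summed to 51.1 to 339.9 CPM in shPTB and 826 to 2214 CPM in mock libraries, with 4, 5, 5 and 5 of 10 tested genes lower and 4, 4, 4 and 2 higher in the same order. Genes of ependyma and choroid plexus summed to 8.24 to 50.8 CPM in shPTB and 46.8 to 103 CPM in mock libraries, with 4 of 6 tested genes lower each time and 2, 2, 1 and 1 higher. Oligodendrocyte and precursor genes summed to 427 to 468 CPM in cortex shPTB and 169 to 191 CPM in cortex mock libraries. They summed to 232 to 270.4 CPM in midbrain shPTB and 255 to 298 CPM in midbrain mock libraries. In the same order 5, 3, 7 and 6 of their 10 tested genes were higher and 2, 2, 2 and 3 lower. Neuronal genes summed to 78.7 to 167 CPM in shPTB and 148 to 254 CPM in mock libraries, with 2, 2, 5 and 2 of 10 tested genes higher and 3, 5, 3 and 3 lower. Endothelial genes summed to 2.56 to 11.5 CPM in shPTB and 7.61 to 24.5 CPM in mock libraries. The part of these changes in the fall of the myeloid genes was not tested.

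**Figure D5:**
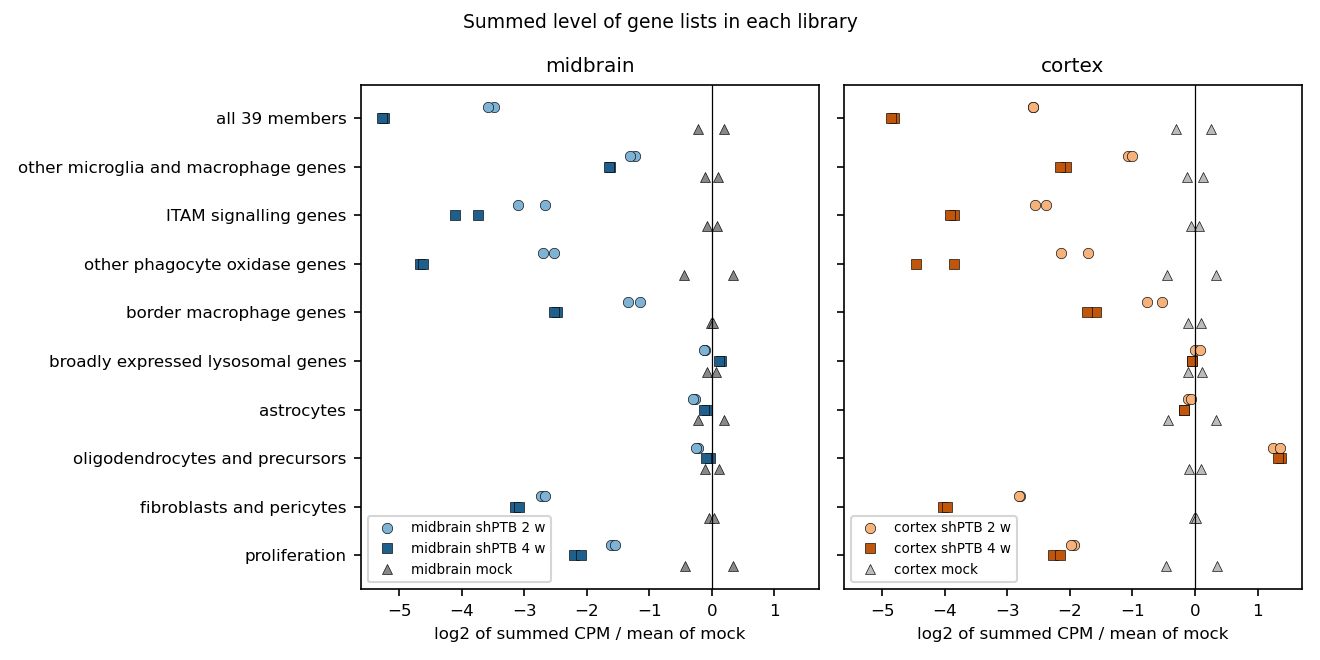
Summed CPM of 10 gene lists in each library, as log2 of the ratio to the mean of the mock libraries of its region, 1 point a library. The 39 members lie furthest below 0 in the 4-week libraries of both regions, fibroblast and pericyte genes and proliferation genes also lie below 0, and oligodendrocyte genes lie above 0 in cortex shPTB libraries and at or just below 0 in midbrain ones.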

How the data were processed

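RNA of 12 libraries was quantified per transcript. The submitters' processing notes name cutadapt 2.3, Salmon 0.14.1, DESeq2 and the mm10 build. The annotation release, and whether strand was used in counting, are not given in the sources used here. Values deposited by the authors are Salmon's estimated counts, not normalized between libraries, and TPM. The deposited TPM, scaled within a library by effective length, served to set levels of different genes side by side and to weight a length offset. Per the labels' protocols, cDNA was primed with a biotinylated primer and captured, and no molecular identifiers are described, so PCR copies count as reads.

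GENCODE M21 (GRCm38) gave the gene of 140137 of 140658 transcripts; the other 521 held 0.0547 to 0.129% of reads. Sums per gene (54356 genes) were rounded to whole numbers, since 56.3% of the transcript values over 0 were not whole. Of these, 14607 genes passed filterByExpr of edgeR 4.0.16 in R 4.3.3 (count minimum 10, total minimum 15). After TMM scaling, edgeR's quasi-likelihood test was fitted to all 6 groups with 1 shared spread (common dispersion 0.0550, 6 residual degrees of freedom) for 11 contrasts, with Benjamini-Hochberg adjustment within each over all genes tested and a threshold of 0.05. Every adjusted p is from this fit unless another tool is named. A group with 0 reads gives a fold bounded at 3 reads over the group, and one with 1 to 3 reads gives a ratio with an exact 95% counting interval.

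The members and gene lists were chosen with earlier results of these data known. Every library's value is given for 22 chosen members, for any that rose or missed the threshold against mock, and for any that passed another contrast. From other lists, up to 3 called genes with the largest change are named where the higher group averaged 5 CPM or more, and any ligand may be. A simulation of cortex at 2 weeks against mock held 13429 genes, with 62, 66 and 62 changed 2-fold, 4-fold and 16-fold. The procedure recovered 19.4%, 74.2% and 93.5% of these, and 7.75% of its calls were unchanged genes. Its counts held no deviation shared by same-numbered mock libraries. In the data 35.0% of genes were called in this comparison, so these rates may not carry over. Alternatives were DESeq2 1.42.0, RLE size factors, total-read scaling, no and a strict count filter (5 CPM in 2 libraries), a length offset, the groups compared alone, a replicate block, no mitochondrial genes, and each library left out in turn, a lone library then borrowing the spread of the other groups. Leaving out both mock libraries of 1 number was chosen after seeing the data. Results of some genes are not reported here.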

Additional observations from a re-analysis of the deposited data

Results flagged for a closer look

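4 differences between the regions' responses to shPTB passed their own test and are set out here because the same contrast gave different sizes in midbrain and cortex. Tmem119 at 4 weeks differed by 2.84 (SE 0.54, adjusted p = 0.0176) (midbrain response minus cortex response, log2), its change against mock being -2.49 in midbrain and -5.33 in cortex. Tyrobp at 4 weeks differed by -1.95 (SE 0.404, adjusted p = 0.0278), its change being -6.19 in midbrain and -4.24 in cortex. Lyz2 differed by -1.62 (SE 0.26, adjusted p = 0.0177) at 2 weeks, where its change was -3.299 in midbrain and -1.68 in cortex, and by -1.196 (SE 0.27, adjusted p = 0.0412) at 4 weeks, where it was -5.41 in midbrain and -4.22 in cortex. All changes were falls in both regions, and each of the 4 calls was lost without at least 1 library, as given in the report.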

How the results depend on the processing

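The median log2 fold change of the members was below 0 in each comparison with mock under every alternative run, RLE size factors ended none of the calls among the 152 member values, and leaving out mitochondrial genes ended none among the 148 it could test (Ccl4 did not pass the count filter there). DESeq2 ended 10 of these calls (4 of Gpr34, 2 of Itgam, and 1 each of Selplg, Cd14, Ccl3 and Ccl4), and length offsets ended 5, those of Spi1 at 2 weeks in both regions and P2ry12, Cyba and Ccl3 once each, beside the reversed values. Values that reversed are given in the report: with length offsets P2ry12 at -0.024 (midbrain 4 weeks), -0.37 (cortex 2 weeks) and -0.67 (cortex 4 weeks) and Ccl3 at 0.064 (cortex 4 weeks), with total-read scaling Clec4a1 at -0.59 (cortex 4 weeks), Cd14 at -0.45 (midbrain 2 weeks) and Ccl3 at -0.091 (cortex 2 weeks), and Cd14 at -0.29 (midbrain 2 weeks) without midbrain 2-week library 1, its values without 1 library running from -0.29 to 0.59. Total-read scaling shifted the median of all genes by -0.67, -0.87, -0.74 and -1.09 (midbrain 2 and 4 weeks, cortex 2 and 4 weeks), and 17.1%, 13.1%, 16.5% and 9.28% of calls were then higher, where TMM gave 51.8%, 47.8%, 49.8% and 47.02%; relative to that shift the members' medians were -3.71, -5.86, -3.04 and -5.27. Causes were not tested.

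With DESeq2 there were 1 member for the regions in mock and 4 for the regions at 2 weeks, and 170 genes for the interaction at 2 weeks called. Without both mock libraries numbered 1 there were 19 members for midbrain 4 against 2 weeks, 5 for the regions in mock, 13 for the regions at 2 weeks, 10 for the regions at 4 weeks, 9 for the interaction at 2 weeks and 8 for the interaction at 4 weeks, and 3758 genes for midbrain 4 against 2 weeks, 2704 for cortex 4 against 2 weeks, 1126 for the regions in mock, 3053 for the regions at 2 weeks, 3613 for the regions at 4 weeks, 1284 for the interaction at 2 weeks and 1773 for the interaction at 4 weeks called. Without both mock libraries numbered 2 there were 19 members for midbrain 4 against 2 weeks, 5 for the regions in mock, 13 for the regions at 2 weeks, 10 for the regions at 4 weeks, 8 for the interaction at 2 weeks and 9 for the interaction at 4 weeks, and 8413 genes for midbrain 2 weeks, 8884 for midbrain 4 weeks, 8385 for cortex 2 weeks, 3694 for midbrain 4 against 2 weeks, 2644 for cortex 4 against 2 weeks, 1443 for the regions in mock, 3023 for the regions at 2 weeks, 3588 for the regions at 4 weeks, 1559 for the interaction at 2 weeks and 2077 for the interaction at 4 weeks called. With transcript length offsets there were 3 members for the regions at 4 weeks, 0 for the interaction at 2 weeks and 1 for the interaction at 4 weeks, and 164 genes for the regions in mock, 206 for the regions at 2 weeks and 47 for the interaction at 2 weeks called. With no count filter there were 2 members for the regions in mock, 9 for the regions at 2 weeks, 4 for the interaction at 2 weeks and 6 for the interaction at 4 weeks, and 860 genes for midbrain 4 against 2 weeks, 793 for cortex 4 against 2 weeks, 556 for the regions in mock, 826 for the regions at 2 weeks, 318 for the interaction at 2 weeks and 754 for the interaction at 4 weeks called. With only the groups compared in the fit there were 13 members for the regions at 2 weeks, 0 for the interaction at 2 weeks and 0 for the interaction at 4 weeks, and 3903 genes for midbrain 4 against 2 weeks, 2608 for cortex 4 against 2 weeks, 0 for the regions in mock, 3209 for the regions at 2 weeks, 3681 for the regions at 4 weeks, 34 for the interaction at 2 weeks and 164 for the interaction at 4 weeks called. Scaled to total reads there were 5 members for the regions at 2 weeks and 5 for the interaction at 4 weeks, and 6833 genes for midbrain 2 weeks, 9201 for cortex 4 weeks and 933 for cortex 4 against 2 weeks called. With the strict filter there were 1 member for the regions in mock and 5 for the interaction at 4 weeks called.

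Leaving out 1 library, members called ran over 28 to 36 for midbrain 2 weeks, 32 to 36 for midbrain 4 weeks, 28 to 33 for cortex 2 weeks, 30 to 36 for cortex 4 weeks, 3 to 7 for midbrain 4 against 2 weeks, 3 to 7 for cortex 4 against 2 weeks, 0 to 1 for the regions in mock, 0 to 1 for the regions at 2 weeks, 2 to 3 for the regions at 4 weeks, 0 to 3 for the interaction at 2 weeks and 0 to 5 for the interaction at 4 weeks. Genes called ran over 2424 to 5282 for midbrain 2 weeks, 3305 to 6170 for midbrain 4 weeks, 2966 to 5926 for cortex 2 weeks, 3686 to 6431 for cortex 4 weeks, 25 to 52 for midbrain 4 against 2 weeks, 43 to 99 for cortex 4 against 2 weeks, 242 to 325 for the regions in mock, 70 to 94 for the regions at 2 weeks, 442 to 516 for the regions at 4 weeks, 26 to 163 for the interaction at 2 weeks and 138 to 550 for the interaction at 4 weeks.

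With the replicate block there were 1 member for the regions in mock and 4 for the regions at 2 weeks called. Same-numbered libraries deviated together in the mock pair (correlation 0.716) and not elsewhere (-0.0274 to 0.0306). The main fit paired no libraries, so this shared deviation of the mock libraries was left in its spread. Contrasts between regions in mock and the interactions ignored it, and its cause was not tested. The block fit, with 1 shift by number for all groups, changed 3 of the 152 calls. It ended that of Ccl4 at 2 weeks in midbrain (-2.54, adjusted p = 0.0521). It added Cyba at 4 weeks in midbrain (-0.97, adjusted p = 0.03502) and at 2 weeks in cortex (-0.97, adjusted p = 0.0488). Depth limits the low members: 3 reads were up to 0.576 CPM.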
